A study of Homo sapiens with 21 samples.

Results

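The collagen, laminin and integrin genes described here carry a symbol of the collagen, the laminin alpha, beta or gamma, or the integrin alpha or beta families and had at least 100 counts in total over the 21 libraries. Of 79 genes with such a symbol among 37355 in the count table, 50 met the minimum. They are 11 fibrillar and fibril-associated collagens, 15 network, membrane and other collagens, 7 laminin chains, 11 integrin alpha chains and 6 integrin beta chains. The choice used symbols and total abundance, not any difference between groups, but it was made with earlier results of these data known. All but COL3A1 passed the filter on low counts, which left 49 members among 17650 tested genes. COL15A1, COL20A1, COL25A1, COL26A1, COL3A1 and ITGAL had under 100 counts outside the group in which they were highest, so their values in that group are given as a description, without a test. COL15A1 also had under 100 counts without BT-TR1, so its values there are likewise a description.

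Collagens, laminins and integrins make, anchor and read the extracellular matrix. Collagens are trimers that build fibrils, or the open network of the basement membrane, and laminins are heterotrimers of an alpha, a beta and a gamma chain that form the basement membrane's polymer. Integrins are pairs of an alpha and a beta chain that bind these proteins from the cell surface and connect them to the actin cytoskeleton or, for the α6β4 pair, to keratin filaments. In breast epithelium, laminins and their integrin receptors hold cells to the basement membrane and feed into the same kinase pathways as HER2.

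The 7 groups compared held 3 RNA-seq libraries each, all from a human cell line. BT474, a HER2-positive breast cancer line sensitive to HER2 antibodies, was given trastuzumab at 10 µg/mL for 3 days, or trastuzumab and pertuzumab at 10 µg/mL each for 3 days. BT-TR1 and BT-TR2 are BT474-derived pools resistant to trastuzumab, and BT-TPR1 and BT-TPR2 are pools resistant to both antibodies. The pools had been without antibody for 7 days at harvest, and the reference for all of these was BT474 without treatment. Each kind of resistance was represented by 2 pools, and nothing in the labels says whether the libraries of a group came from separate cultures, so a p-value measures only the spread between these libraries.

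Library totals ran from 7939270 to 21746391 counts, lowest in BT-TR1, and mitochondrially encoded RNA took 13.7% to 33.3% of them. The replicate 1 libraries stood apart from their groups by base composition: the deviation of a gene from its group mean correlated with the GC content of its transcripts at r from 0.377 to 0.689 in these, and from -0.621 to 0.0911 in the other 14 libraries, across genes, which are not independent replicates. The members are GC-rich, with a median of 54.5%, where all genes have 47.8%, so a call lost or gained, or a called value moved by over 1.5 times, when each library was corrected for GC content is given with the gene for the members described by library. Markers of luminal breast epithelium summed to 7519 to 15370.0 CPM (read counts scaled to library size) in every library, as the label of the line calls for. Of the 7 fibroblast markers only FBLN1 was expressed enough to be tested, and the 6 leukocyte markers summed to at most 1.40 CPM. The 5 endothelial markers summed to 5.45 to 18.4 CPM and the 7 basal and myoepithelial markers to 4.83 to 12.2 CPM, with 2 tested in each list.

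A gene was called where edgeR's quasi-likelihood test gave an adjusted p (Benjamini-Hochberg over all 17650 genes) below 0.05. The comparisons with untreated cells share the same 3 untreated libraries and are therefore given side by side. Values are CPM for replicates 1, 2 and 3 of a group, and differences are log2 fold changes ± standard error. In these bulk samples, fewer cells with a transcript and less of it per cell cannot be told apart.

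More members were lower than higher in each resistant pool against untreated BT474. In BT-TR1, 8 of the 49 tested members were higher and 21 lower (21.3% of all tested genes were called higher and 22.3% lower), and in BT-TR2 7 were higher and 14 lower (12.7% of all tested genes were called higher and 12.1% lower). In BT-TPR1, 6 were higher and 16 lower (12.9% of all tested genes were called higher and 14.4% lower), and in BT-TPR2 4 were higher and 17 lower (15.6% of all tested genes were called higher and 16% lower). The lower members came to 42.9%, 28.6%, 32.7% and 34.7% of those tested in the same order of pools. The members' median log2 fold change was -0.70, -0.43, -0.59 and -0.42 in that order, where the median over all tested genes was within 0.01 of 0. Without the members that met the count minimum through 1 group, 44 stayed, of which 20 were lower and 6 higher in BT-TR1. BT-TR2 then had 13 lower with 5 higher, BT-TPR1 16 lower with 5 higher, and BT-TPR2 15 lower with 2 higher.

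After 3 days of antibody the members' median log2 fold change was -0.26 with trastuzumab and -0.25 with both antibodies, where all tested genes had -0.02 and -0.01. With trastuzumab, 5 members were lower (COL6A1, COL9A2, LAMC1, ITGB1 and ITGB6) and 0 higher (3.71% of all tested genes were called higher and 3.78% lower). By edgeR at an unadjusted p below 0.05 there were 3 higher, and DESeq2 and limma also called 0 higher. The GC correction called 2 higher and 11 lower, and a fit with the replicate number as a block (replicate block) 3 higher and 15 lower. Both also called more of all genes, with 7.22% of all tested genes higher and 9% lower with the GC correction and 11.5% of all tested genes higher and 14.8% lower with the block. With both antibodies, 5 members were higher and 8 lower (6.39% of all tested genes were called higher and 6.02% lower). Without the members that met the count minimum through 1 group, 4 of 44 were higher and 8 lower with both antibodies. Set directly against trastuzumab alone, both antibodies gave 2 higher and 1 lower (0.487% of all tested genes were called higher and 0.38% lower), and 2 and 2 with the GC correction or 2 and 0 when scaled by library size alone. Of all genes, 258 of 17554 were called with the GC correction (149 higher) and 119 of 17650 by library size alone (73 higher).

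Between the pools of a kind fewer members were called. BT-TR2 had 4 members higher and 5 lower than BT-TR1 (9.64% of all tested genes were called higher and 8.09% lower), or 8.2% and 10.2% of the members, shares near those of all genes. These counts became 1 higher and 5 lower with the GC correction and 6 higher and 4 lower by library size alone. Over all genes, 1555 of 17554 were then called with the GC correction, 993 of them higher. By library size alone, 2895 of 17650 were called, 2329 of them higher. Between BT-TPR2 and BT-TPR1, 5 of the 49 tested members were called (3.45% of all tested genes were called). With the replicate block the number of members called was 37 in BT-TPR1, 32 in BT-TPR2 and 8 between these pools, against 22, 21 and 5 without it. Over all tested genes the block called 47.4% in BT-TPR1, 51.1% in BT-TPR2 and 12% between them, against 27.3%, 31.6% and 3.45% without it.

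**Figure D1:**
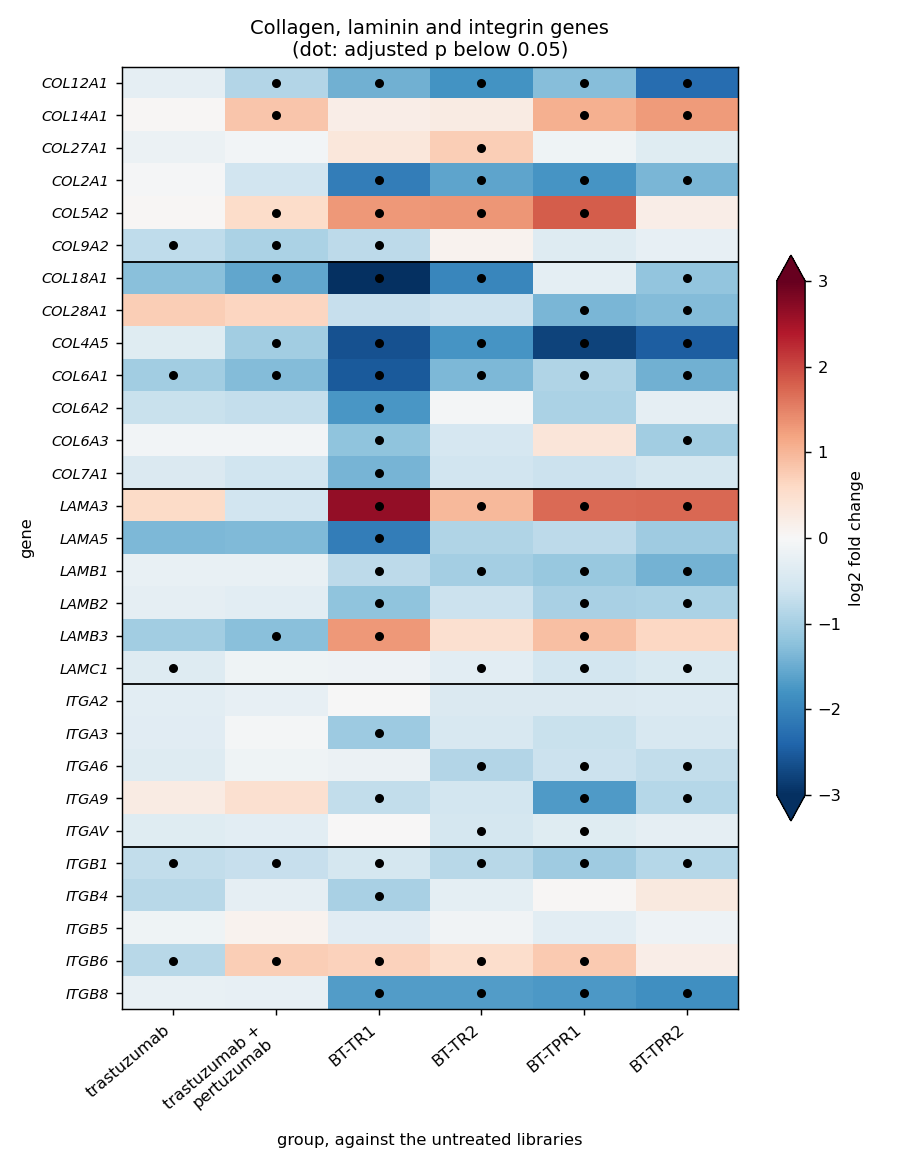
Log2 fold change of 29 member genes (rows, by family) in each treated group or resistant pool against the untreated libraries (columns, 3 libraries against 3). Colour runs from lower (blue) to higher (red), dots mark an adjusted p below 0.05, and lines separate fibrillar and fibril-associated collagens, other collagens, laminins, integrin alpha chains and integrin beta chains. The rows of COL12A1, COL2A1, COL4A5, LAMB1 and ITGB8 are blue in each pool and LAMA3 is red.

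The stretches before the RefSeq starts of 4 members that the results below turn on differ in base composition. The 250 bases before the RefSeq start are shown for COL12A1, LAMB1 and ITGB8, lower in each pool, and for ITGB6, lower with trastuzumab and higher with both antibodies. Build GRCh38.p14 gives them as chr6:75206054-75206303 (minus strand), chr7:108003162-108003411 (minus), chr7:20330650-20330899 (plus) and chr2:160200273-160200522 (minus), each printed 5′ to 3′ on its own strand with GC boxes (GGGCGG on either strand) in capitals.
COL12A1: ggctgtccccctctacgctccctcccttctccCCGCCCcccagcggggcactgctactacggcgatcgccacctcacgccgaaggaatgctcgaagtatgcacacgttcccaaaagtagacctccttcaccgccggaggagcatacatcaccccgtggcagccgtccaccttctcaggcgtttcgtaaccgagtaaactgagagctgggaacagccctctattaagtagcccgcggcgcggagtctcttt
LAMB1: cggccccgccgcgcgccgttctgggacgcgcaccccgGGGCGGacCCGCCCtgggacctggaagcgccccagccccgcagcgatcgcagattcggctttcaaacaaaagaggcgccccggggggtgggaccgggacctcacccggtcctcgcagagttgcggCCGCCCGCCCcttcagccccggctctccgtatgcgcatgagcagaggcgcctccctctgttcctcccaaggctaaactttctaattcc
ITGB8: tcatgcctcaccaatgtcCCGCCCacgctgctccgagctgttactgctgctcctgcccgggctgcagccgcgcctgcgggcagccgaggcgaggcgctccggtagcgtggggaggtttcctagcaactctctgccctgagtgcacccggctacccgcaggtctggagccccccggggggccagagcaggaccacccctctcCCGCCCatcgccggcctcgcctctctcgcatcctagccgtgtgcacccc
ITGB6: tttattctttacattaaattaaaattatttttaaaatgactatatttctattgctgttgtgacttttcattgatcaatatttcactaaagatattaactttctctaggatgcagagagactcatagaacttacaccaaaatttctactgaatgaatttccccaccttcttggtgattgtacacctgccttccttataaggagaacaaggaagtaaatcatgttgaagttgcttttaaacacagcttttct
The COL12A1 window has 1 GC box, LAMB1 has 4, some overlapping, ITGB8 has 2 and ITGB6 has 0. In GENCODE 29 the LAMB1, ITGB8 and ITGB6 genes start inside their windows, so part of each of these windows lies within the gene annotated there. In G and C, the windows hold 61.2% for COL12A1, 70.4% for LAMB1, 71.2% for ITGB8 and 30.000% for ITGB6. Neither a TATA box (TATAAA) nor an AP-1 site (TGANTCA) is in these 4 windows on either strand. Over 34788 distinct windows of the RefSeq table, 42.6% hold the GC box, 10.8% the TATA box and 6.6% the AP-1 site. The table has 36 of the 50 members with 45 windows, of which 29 hold the GC box, 6 the TATA box and 2 the AP-1 site, and such a match is a description of the letters only.

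The most abundant collagen transcript, COL12A1 (chr6:75084326-75206051, minus strand), fell with both antibodies and in each pool. It encodes the chain of collagen XII, which lies along the surface of collagen I fibrils. There were 673, 866 and 837 CPM with trastuzumab and 475, 488 and 582 CPM with both antibodies. The pools had 289, 432 and 331.5 CPM in BT-TR1, 258, 269 and 302 CPM in BT-TR2, 384, 371 and 413 CPM in BT-TPR1 and 203, 178 and 206 CPM in BT-TPR2, against 881, 1075 and 899 CPM in the untreated libraries. Neither the pools nor the dual-antibody libraries overlapped with the untreated libraries, and BT-TPR2 was lowest throughout. The differences were -0.89 ± 0.14 with both antibodies (adjusted p = 3.15e-04), -1.44 ± 0.14 in BT-TR1 (adjusted p = 4.32e-07), -1.78 ± 0.14 in BT-TR2 (adjusted p = 3.94e-08), -1.29 ± 0.14 in BT-TPR1 (adjusted p = 2.01e-06) and -2.28 ± 0.15 in BT-TPR2 (adjusted p = 1.17e-09). Trastuzumab alone gave -0.26 (adjusted p = 0.271), with all 3 libraries below the untreated range. Both antibodies were lower than trastuzumab alone, with a log2 fold change of -0.62 ± 0.14 (adjusted p = 0.0375), and BT-TPR2 was lower than BT-TPR1, with a log2 fold change of -0.99 ± 0.14 (adjusted p = 2.25e-04). For COL12A1, the call for both antibodies over trastuzumab alone was lost in 11 of the 21 refits without 1 library (adjusted p up to 0.239, without trastuzumab replicate 2). COL12A1 also missed the threshold for both antibodies over trastuzumab alone with library size alone or when the compared groups were fitted alone (adjusted p = 0.142 and 0.176). Per length of exon, COL12A1 stood at 15.7 ± 1.21 RPKM (CPM per kilobase of exon, SD, n = 3) in BT-TPR2 and 76.2 ± 8.59 RPKM in untreated cells.

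COL2A1, the chain of the cartilage collagen II, was a low transcript that fell in each pool. It measured 4.54, 4.59 and 3.39 CPM with trastuzumab and 2.75, 3.26 and 2.58 CPM with both antibodies. The values were 1.41, 1.04 and 0.396 CPM in BT-TR1, 2.10, 1.29 and 0.898 CPM in BT-TR2, 1.44, 0.944 and 1.35 CPM in BT-TPR1 and 2.39, 1.30 and 1.32 CPM in BT-TPR2, against 4.62, 4.55 and 3.72 CPM in the untreated libraries. No pool library reached the untreated range. The log2 fold changes were -2.07 in BT-TR1, -1.58 in BT-TR2, -1.78 in BT-TPR1 and -1.37 in BT-TPR2, with SE from 0.29 to 0.34 and adjusted p from 1.30e-04 to 0.00157, and each call held in all 21 refits that left out 1 library. The dual-antibody libraries also lay below the untreated ones, with a log2 fold change of -0.58 (adjusted p = 0.176). COL2A1 had a log2 fold change of -1.24 in BT-TR1 (adjusted p = 8.17e-04) after the GC correction.

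COL9A2 encodes a chain of the fibril-associated collagen IX. Its level was 8.52, 9.19 and 8.86 CPM with trastuzumab and 8.19, 8.35 and 6.72 CPM with both antibodies. Pool values were 9.79, 7.83 and 8.45 CPM in BT-TR1, 18.4, 15.3 and 14.6 CPM in BT-TR2, 13.5, 11.4 and 9.61 CPM in BT-TPR1 and 15.5, 12.4 and 9.90 CPM in BT-TPR2, against 18.7, 12.8 and 13.5 CPM in the untreated libraries. The treated libraries and those of BT-TR1 lay below all untreated libraries, while the other pools overlapped with them. Calls were -0.76 ± 0.18 with trastuzumab (adjusted p = 0.0129), -0.95 ± 0.18 with both antibodies (adjusted p = 0.0016), -0.78 ± 0.18 in BT-TR1 (adjusted p = 0.00258) and 0.88 ± 0.19 for BT-TR2 over BT-TR1 (adjusted p = 0.00614). The transcripts of COL9A2 are 66.1% G and C, and the correction for GC content turned the direction in BT-TR1. For COL9A2, the call with trastuzumab was lost without untreated replicate 1 or trastuzumab replicate 3 (adjusted p = 0.0657 and 0.0527). COL9A2 also missed the threshold with trastuzumab when the compared groups were fitted alone (adjusted p = 0.0635). COL9A2 passed under the replicate block as well, at -0.38 in BT-TPR1 (adjusted p = 0.0111). COL9A2 had a log2 fold change of -0.29 with trastuzumab (adjusted p = 0.238), -0.35 with both antibodies (adjusted p = 0.132), 0.51 in BT-TR1 (adjusted p = 0.0255) and 0.01 for BT-TR2 over BT-TR1 (adjusted p = 0.978) after the GC correction. COL9A2 gained a call after the GC correction, at 0.53 in BT-TR2 (adjusted p = 0.0127). COL9A2 also had a called value of 0.28 (adjusted p = 0.0194) in BT-TPR2 with the GC correction and the replicate block together.

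Unlike these, COL5A2 rose in 3 of the 4 pools. It encodes a chain of collagen V, which sits inside collagen I fibrils and limits their width. It had 3.25, 3.23 and 4.00 CPM with trastuzumab and 5.50, 5.04 and 4.53 CPM with both antibodies. Its values were 9.12, 9.31 and 6.60 CPM in BT-TR1, 7.80, 9.06 and 8.78 CPM in BT-TR2, 13.05, 12.5 and 11.02 CPM in BT-TPR1 and 4.19, 4.09 and 3.51 CPM in BT-TPR2, against 3.30, 3.41 and 3.58 CPM in the untreated libraries. The dual-antibody, BT-TR1, BT-TR2 and BT-TPR1 libraries lay wholly above the untreated range, and BT-TPR2 overlapped with it. Differences were 0.55 ± 0.15 with both antibodies (adjusted p = 0.0241), 1.29 ± 0.15 in BT-TR1 (adjusted p = 4.98e-06), 1.31 ± 0.15 in BT-TR2 (adjusted p = 3.83e-06) and 1.83 ± 0.15 in BT-TPR1 (adjusted p = 5.78e-08). The log2 fold change was 0.20 in BT-TPR2 (adjusted p = 0.354), and against BT-TPR1 it was -1.63 ± 0.15 (adjusted p = 1.54e-06), a call that held in all 21 refits. For COL5A2, the call with both antibodies was lost without untreated replicate 1, untreated replicate 2, dual-antibody replicate 1 or dual-antibody replicate 2 (adjusted p = 0.063, 0.0562, 0.0638 and 0.0666). COL5A2 also missed the threshold with both antibodies in 4 of 8 other settings (adjusted p up to 0.133, with no filter).

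COL14A1, another fibril-associated collagen that binds decorin on fibrils, rose with both antibodies and in the pools resistant to both. It had 7.01, 7.33 and 6.69 CPM with trastuzumab and 14.7, 11.4 and 10.3 CPM with both antibodies. Further values were 7.05, 9.40 and 6.99 CPM in BT-TR1, 8.04, 7.77 and 8.46 CPM in BT-TR2, 15.2, 13.3 and 14.7 CPM in BT-TPR1 and 17.6, 14.7 and 17.7 CPM in BT-TPR2, against 6.76, 7.14 and 6.58 CPM in the untreated libraries. The dual-antibody, BT-TPR1 and BT-TPR2 libraries all exceeded the untreated range. It was called at 0.83 ± 0.14 with both antibodies (adjusted p = 6.89e-04), 1.08 ± 0.14 in BT-TPR1 (adjusted p = 2.02e-05) and 1.29 ± 0.14 in BT-TPR2 (adjusted p = 1.84e-06). Trastuzumab alone and the trastuzumab-resistant pools gave 0.04 with trastuzumab (adjusted p = 0.911), 0.20 in BT-TR1 (adjusted p = 0.29) and 0.25 in BT-TR2 (adjusted p = 0.228). Both antibodies exceeded trastuzumab alone by 0.79 ± 0.14 (adjusted p = 0.00634). The dual-resistant pools were not set directly against the trastuzumab-resistant ones. For COL14A1, the call for both antibodies over trastuzumab alone was lost without trastuzumab replicate 3 or dual-antibody replicate 1 (adjusted p = 0.0506 and 0.0533). COL14A1 also missed the threshold for both antibodies over trastuzumab alone when the compared groups were fitted alone or with replicates 2 and 3 alone (adjusted p = 0.124 and 0.0796).

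COL27A1, a fibrillar collagen of cartilage, had 3.59, 4.10 and 3.39 CPM with trastuzumab and 3.52, 4.55 and 3.85 CPM with both antibodies. Its pool values were 5.79, 6.26 and 3.70 CPM in BT-TR1, 7.38, 6.85 and 6.93 CPM in BT-TR2, 5.00, 3.90 and 2.56 CPM in BT-TPR1 and 4.65, 2.60 and 2.51 CPM in BT-TPR2, against 4.78, 4.19 and 3.63 CPM in the untreated libraries. BT-TR2 lay above the untreated range and gave the only call, with a log2 fold change of 0.75 ± 0.24 (adjusted p = 0.0278). For COL27A1, the call in BT-TR2 was lost in 5 of the 21 refits without 1 library (adjusted p up to 0.094, without untreated replicate 3). COL27A1 gained a call after the GC correction, at 0.90 in BT-TR1 (adjusted p = 0.0015).

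**Figure D2:**
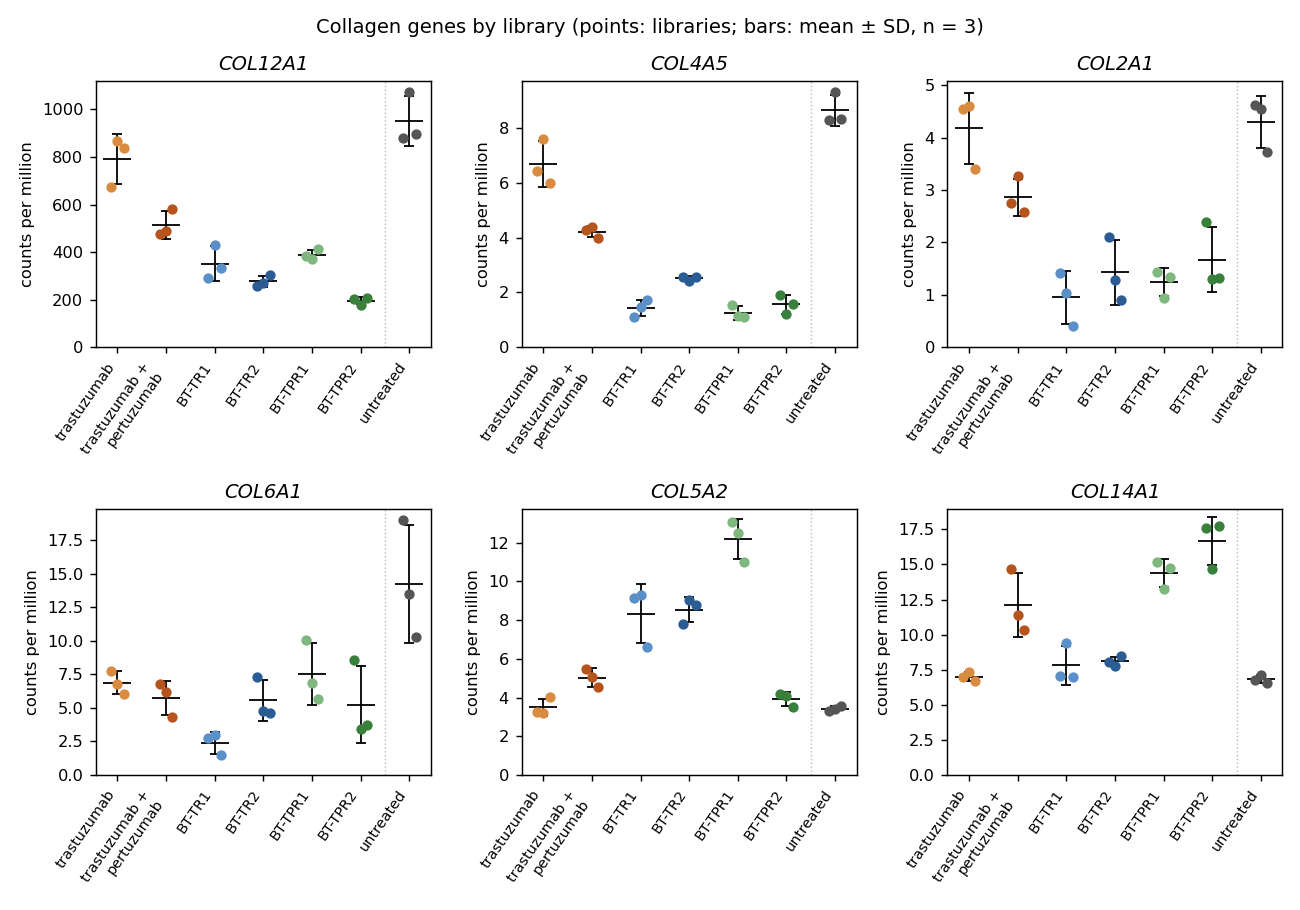
CPM of COL12A1, COL4A5, COL2A1, COL6A1, COL5A2 and COL14A1 in each library (points, 3 per group) with the group mean and SD (bars), on linear axes that start at 0. COL12A1, COL4A5 and COL2A1 lie below the untreated libraries in each pool, COL5A2 lies above them in BT-TR1, BT-TR2 and BT-TPR1, and COL14A1 lies above them with both antibodies and in BT-TPR1 and BT-TPR2.

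Among the network collagens, COL4A5 (chrX:108439844-108697545, plus strand) fell with both antibodies and in each pool. Its product is a chain of collagen IV, the network of the basement membrane, and pairs with the α3 and α4 or the α6 chain. There were 6.45, 7.62 and 5.98 CPM with trastuzumab and 4.29, 4.40 and 3.99 CPM with both antibodies. In the pools the values were 1.11, 1.48 and 1.72 CPM in BT-TR1, 2.58, 2.42 and 2.56 CPM in BT-TR2, 1.55, 1.13 and 1.09 CPM in BT-TPR1 and 1.92, 1.21 and 1.57 CPM in BT-TPR2, against 8.30, 9.31 and 8.35 CPM in the untreated libraries. Every antibody-treated or pool library was below every untreated library. The log2 fold changes were -1.03 with both antibodies, -2.62 in BT-TR1, -1.78 in BT-TR2, -2.77 in BT-TPR1 and -2.47 in BT-TPR2, with SE from 0.16 to 0.20 and adjusted p from 3.74e-09 to 3.12e-04, and these calls held in all 21 refits. BT-TR2 was above BT-TR1 by 0.84 ± 0.21 (adjusted p = 0.0142). For COL4A5, the call for BT-TR2 over BT-TR1 was lost without BT-TR1 replicate 1, BT-TR1 replicate 2 or BT-TR2 replicate 1 (adjusted p = 0.0647, 0.0525 and 0.0639). COL4A5 also missed the threshold for BT-TR2 over BT-TR1 when the compared groups were fitted alone or with replicates 2 and 3 alone (adjusted p = 0.0538 and 0.0812). COL4A5 passed under the replicate block as well, at -0.37 with trastuzumab (adjusted p = 0.0459) and -0.66 for both antibodies over trastuzumab alone (adjusted p = 0.0119). COL4A5 gained a call after the GC correction, at -0.67 for both antibodies over trastuzumab alone (adjusted p = 0.0327).

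The 3 chains of collagen VI, a beaded-filament collagen near the basement membrane, did not move alike. COL6A1 had 7.74, 6.79 and 6.03 CPM with trastuzumab and 6.76, 6.18 and 4.33 CPM with both antibodies. It had 2.74, 2.96 and 1.45 CPM in BT-TR1, 7.32, 4.74 and 4.62 CPM in BT-TR2, 10.1, 6.86 and 5.64 CPM in BT-TPR1 and 8.55, 3.44 and 3.70 CPM in BT-TPR2, against 18.95, 13.4 and 10.3 CPM in the untreated libraries. All antibody-treated and pool libraries lay below the untreated range, with BT-TPR1 replicate 1 just below untreated replicate 3. Calls were -1.05 ± 0.32 with trastuzumab (adjusted p = 0.0496), -1.30 ± 0.32 with both antibodies (adjusted p = 0.0116), -2.52 ± 0.37 in BT-TR1 (adjusted p = 4.23e-05), -1.35 ± 0.32 in BT-TR2 (adjusted p = 0.00502), -0.91 ± 0.32 in BT-TPR1 (adjusted p = 0.0391) and -1.45 ± 0.32 in BT-TPR2 (adjusted p = 0.00236), and BT-TR2 exceeded BT-TR1 by 1.17 ± 0.38 (adjusted p = 0.0396). For COL6A1, the call with trastuzumab was lost in 14 of the 21 refits without 1 library (adjusted p up to 0.175, without trastuzumab replicate 3), the call with both antibodies was lost without untreated replicate 1 or dual-antibody replicate 3 (adjusted p = 0.0557 and 0.0731), the call in BT-TPR1 was lost in 5 of the 21 refits without 1 library (adjusted p up to 0.188, without untreated replicate 1) and the call for BT-TR2 over BT-TR1 was lost without BT-TR1 replicate 1, BT-TR1 replicate 2, BT-TR1 replicate 3 or BT-TR2 replicate 1 (adjusted p = 0.0503, 0.0838, 0.168 and 0.204). COL6A1 also missed the threshold with trastuzumab in limma (adjusted p = 0.059) and in BT-TPR1 with library size alone (adjusted p = 0.0568). COL6A1 passed under the replicate block as well, at -0.56 for BT-TPR2 over BT-TPR1 (adjusted p = 0.0358). COL6A1 had a log2 fold change of -1.53 in BT-TR1 (adjusted p = 2.58e-06) and 0.45 for BT-TR2 over BT-TR1 (adjusted p = 0.17) after the GC correction.

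COL6A2 lies 93.0 kb from COL6A1 on chromosome 21. It had 3.76, 2.88 and 2.45 CPM with trastuzumab and 3.74, 2.87 and 2.24 CPM with both antibodies. It showed 1.19, 2.26 and 0.660 CPM in BT-TR1, 7.08, 2.88 and 4.04 CPM in BT-TR2, 3.79, 1.95 and 1.67 CPM in BT-TPR1 and 6.86, 3.16 and 2.01 CPM in BT-TPR2, against 6.92, 4.86 and 2.72 CPM in the untreated libraries. Only BT-TR1 stood wholly below the untreated libraries, with -1.75 ± 0.52 (adjusted p = 0.0112), and BT-TR2 was higher than BT-TR1 by 1.70 ± 0.52 (adjusted p = 0.0334). For COL6A2, the call in BT-TR1 was lost without untreated replicate 1 or BT-TR1 replicate 3 (adjusted p = 0.062 and 0.0551) and the call for BT-TR2 over BT-TR1 was lost without BT-TR1 replicate 1, BT-TR1 replicate 2, BT-TR1 replicate 3 or BT-TR2 replicate 1 (adjusted p = 0.0719, 0.0503, 0.143 and 0.198). COL6A2 also missed the threshold for BT-TR2 over BT-TR1 when the compared groups were fitted alone or with replicates 2 and 3 alone (adjusted p = 0.0513 and 0.053). COL6A2 passed under the replicate block as well, at -0.96 in BT-TPR1 (adjusted p = 0.00343). COL6A2 had a log2 fold change of -0.55 in BT-TR1 (adjusted p = 0.192) and 0.84 for BT-TR2 over BT-TR1 (adjusted p = 0.109) after the GC correction.

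COL6A3, on chromosome 2, gave 2.80, 3.57 and 3.67 CPM with trastuzumab and 4.07, 3.31 and 2.73 CPM with both antibodies. Its other values were 1.93, 1.48 and 1.06 CPM in BT-TR1, 2.52, 2.27 and 2.82 CPM in BT-TR2, 5.46, 3.46 and 4.81 CPM in BT-TPR1 and 2.21, 1.12 and 1.94 CPM in BT-TPR2, against 4.18, 2.95 and 3.58 CPM in the untreated libraries. BT-TR1, BT-TR2 and BT-TPR2 were below all untreated libraries, with calls of -1.21 ± 0.28 in BT-TR1 (adjusted p = 0.00208) and -1.04 ± 0.25 in BT-TPR2 (adjusted p = 0.00442) and an uncalled -0.50 in BT-TR2 (adjusted p = 0.146). BT-TPR1 overlapped with the untreated range, at 0.36 (adjusted p = 0.264), and BT-TPR2 was lower than BT-TPR1 with a value of -1.40 ± 0.25 (adjusted p = 0.00239), a call that held in all 21 refits. COL6A3 also missed the threshold for BT-TPR2 over BT-TPR1 when the compared groups were fitted alone (adjusted p = 0.0691).

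COL18A1 encodes a basement membrane collagen whose C-terminal fragment is endostatin. Treated cells had 3.87, 5.23 and 3.96 CPM with trastuzumab and 4.29, 3.76 and 2.58 CPM with both antibodies. The pools had 1.78, 1.04 and 0.528 CPM in BT-TR1, 4.02, 1.90 and 2.18 CPM in BT-TR2, 13.2, 6.04 and 6.22 CPM in BT-TPR1 and 7.50, 3.35 and 2.88 CPM in BT-TPR2, against 13.7, 10.5 and 7.08 CPM in the untreated libraries. Trastuzumab, both antibodies, BT-TR1 and BT-TR2 lay below all untreated libraries, while BT-TPR1 and BT-TPR2 overlapped with them. The calls were -1.56 ± 0.39 with both antibodies (adjusted p = 0.0127), -3.12 ± 0.47 in BT-TR1 (adjusted p = 6.51e-05), -1.95 ± 0.40 in BT-TR2 (adjusted p = 0.00167) and -1.19 ± 0.38 in BT-TPR2 (adjusted p = 0.0241), and the values -1.26 with trastuzumab (adjusted p = 0.051) and -0.30 in BT-TPR1 (adjusted p = 0.583) were not called. Exons of SLC19A1 on the other strand cover 16.4% of its exon length, and whether the counting used strand is not given in the sources used here. For COL18A1, the call with both antibodies was lost without untreated replicate 1 or dual-antibody replicate 3 (adjusted p = 0.0508 and 0.0759) and the call in BT-TPR2 was lost without untreated replicate 1, untreated replicate 2, BT-TPR2 replicate 2 or BT-TPR2 replicate 3 (adjusted p = 0.104, 0.0543, 0.11 and 0.112). COL18A1 also missed the threshold in BT-TPR2 when the compared groups were fitted alone (adjusted p = 0.0607). COL18A1 passed under the replicate block as well, at -1.19 with trastuzumab (adjusted p = 1.42e-04) and -0.91 for BT-TPR2 over BT-TPR1 (adjusted p = 0.00615). COL18A1 had a log2 fold change of -0.91 with both antibodies (adjusted p = 0.00115) and -1.77 in BT-TR1 (adjusted p = 1.02e-05) after the GC correction. COL18A1 gained a call after the GC correction, at -0.72 with trastuzumab (adjusted p = 0.00806) and -0.71 for BT-TPR2 over BT-TPR1 (adjusted p = 0.0183).

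COL7A1, the collagen of the anchoring fibrils that tie the basement membrane to the stroma, had 10.9, 10.4 and 7.58 CPM with trastuzumab and 10.1, 8.45 and 6.91 CPM with both antibodies. It reached 6.60, 4.70 and 3.17 CPM in BT-TR1, 10.02, 8.24 and 7.89 CPM in BT-TR2, 11.6, 6.10 and 6.86 CPM in BT-TPR1 and 16.3, 5.81 and 4.89 CPM in BT-TPR2, against 15.5, 13.9 and 9.35 CPM in the untreated libraries. BT-TR1 alone lay below the untreated range and alone was called, at -1.38 ± 0.38 (adjusted p = 0.00738). COL7A1 passed under the replicate block as well, at -0.56 in BT-TR2 (adjusted p = 0.0218), -0.68 in BT-TPR1 (adjusted p = 0.00667) and -0.60 in BT-TPR2 (adjusted p = 0.0115). COL7A1 had a log2 fold change of -0.32 in BT-TR1 (adjusted p = 0.284) after the GC correction. COL28A1, a small von Willebrand domain collagen, had 8.02, 7.62 and 4.76 CPM with trastuzumab and 7.04, 5.68 and 6.38 CPM with both antibodies. Its remaining values were 2.23, 2.44 and 2.90 CPM in BT-TR1, 2.40, 3.09 and 2.44 CPM in BT-TR2, 1.72, 2.01 and 0.961 CPM in BT-TPR1 and 2.44, 0.791 and 1.75 CPM in BT-TPR2, against 4.67, 4.40 and 3.13 CPM in the untreated libraries. Each pool lay below the untreated libraries and both antibody treatments above them, with calls of -1.36 ± 0.32 in BT-TPR1 (adjusted p = 0.00362) and -1.31 ± 0.31 in BT-TPR2 (adjusted p = 0.00375). COL28A1 passed under the replicate block as well, at 0.74 with trastuzumab (adjusted p = 0.0122), -0.73 in BT-TR1 (adjusted p = 0.0254) and -0.60 in BT-TR2 (adjusted p = 0.0464). COL28A1 gained a call after the GC correction, at -0.88 in BT-TR1 (adjusted p = 0.0345).

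LAMA3 and LAMB3, chains found in the laminin of hemidesmosomes, rose in pools. Of the chains of laminin-511, the widespread laminin of epithelial basement membranes, LAMB1 was called lower in each pool, LAMC1 in 3 and LAMA5 in BT-TR1. With the replicate block, LAMA5 was also called lower in BT-TR2, BT-TPR1 and BT-TPR2. The plot of laminin values by library shows these genes and LAMB2.

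LAMA3 (α3 chain, chr18:23689443-23956222, plus strand) had 0.841, 0.977 and 0.895 CPM with trastuzumab and 0.275, 0.445 and 0.487 CPM with both antibodies. The level was 4.45, 3.74 and 3.17 CPM in BT-TR1, 0.900, 1.24 and 1.47 CPM in BT-TR2, 2.13, 1.70 and 2.11 CPM in BT-TPR1 and 2.50, 1.63 and 1.94 CPM in BT-TPR2, against 0.659, 0.724 and 0.454 CPM in the untreated libraries. All pool libraries exceeded all untreated libraries, BT-TR1 by most. The log2 fold changes were 2.64 in BT-TR1, 0.98 in BT-TR2, 1.70 in BT-TPR1 and 1.72 in BT-TPR2, with SE from 0.25 to 0.27 and adjusted p from 2.67e-07 to 0.0131. BT-TR2 was lower than BT-TR1, with -1.67 ± 0.23 (adjusted p = 4.86e-04), a call that held in all 21 refits. The trastuzumab libraries lay above the untreated range and those with both antibodies overlapped with it, at 0.57 with trastuzumab (adjusted p = 0.238) and -0.57 with both antibodies (adjusted p = 0.326). For LAMA3, the call in BT-TR2 was lost without untreated replicate 3 or BT-TR2 replicate 3 (adjusted p = 0.0629 and 0.0654). LAMA3 also missed the threshold in BT-TR2 when the compared groups were fitted alone (adjusted p = 0.0672). LAMA3 had a log2 fold change of 1.78 in BT-TR1 (adjusted p = 1.41e-07), 1.05 in BT-TPR1 (adjusted p = 1.05e-04) and 1.06 in BT-TPR2 (adjusted p = 7.05e-05) in limma on the deposited transformed values.

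LAMB3 (β3 chain) had 2.41, 2.05 and 1.98 CPM with trastuzumab and 2.31, 1.98 and 1.22 CPM with both antibodies. It came to 13.9, 10.4 and 7.79 CPM in BT-TR1, 9.12, 4.48 and 4.74 CPM in BT-TR2, 9.89, 6.54 and 8.01 CPM in BT-TPR1 and 9.95, 5.54 and 4.89 CPM in BT-TPR2, against 6.21, 3.46 and 3.54 CPM in the untreated libraries. The antibody-treated libraries lay below the untreated range, whereas BT-TR1 and BT-TPR1 lay above it. Calls were -1.26 ± 0.36 with both antibodies (adjusted p = 0.0252), 1.30 ± 0.33 in BT-TR1 (adjusted p = 0.0041) and 0.89 ± 0.32 in BT-TPR1 (adjusted p = 0.0469). BT-TR2 and BT-TPR2 overlapped with the untreated libraries, at 0.48 in BT-TR2 (adjusted p = 0.304) and 0.63 in BT-TPR2 (adjusted p = 0.149). For LAMB3, the call with both antibodies was lost without untreated replicate 1, dual-antibody replicate 2 or dual-antibody replicate 3 (adjusted p = 0.125, 0.0629 and 0.138) and the call in BT-TPR1 was lost in 8 of the 21 refits without 1 library (adjusted p up to 0.142, without untreated replicate 3). LAMB3 also missed the threshold in BT-TPR1 with the strict filter (adjusted p = 0.0506). LAMB3 passed under the replicate block as well, at -0.999 with trastuzumab (adjusted p = 4.10e-04), 0.46 in BT-TR2 (adjusted p = 0.0268) and 0.62 in BT-TPR2 (adjusted p = 0.00296). LAMB3 gained a call after the GC correction, at -0.90 with trastuzumab (adjusted p = 0.00478), 0.55 in BT-TR2 (adjusted p = 0.0246), 0.77 in BT-TPR2 (adjusted p = 0.00229) and -1.31 for BT-TR2 over BT-TR1 (adjusted p = 1.96e-04).

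LAMB1 (β1 chain, chr7:107923799-108003255, minus strand) was among the 3 most abundant laminin transcripts. There were 137, 125 and 118 CPM with trastuzumab and 138, 116 and 128 CPM with both antibodies. Its values stood at 84.6, 94.3 and 80.5 CPM in BT-TR1, 73.6, 69.7 and 77.8 CPM in BT-TR2, 71.2, 58.3 and 72.3 CPM in BT-TPR1 and 59.9, 47.8 and 58.6 CPM in BT-TPR2, against 157, 158 and 130.3 CPM in the untreated libraries. The pools and the untreated libraries did not overlap, and BT-TPR2 had the lowest mean. The log2 fold changes were -0.78 in BT-TR1, -1.01 in BT-TR2, -1.14 in BT-TPR1 and -1.42 in BT-TPR2, with SE from 0.12 to 0.12 and adjusted p from 4.93e-08 to 5.92e-05. Each call held in all 21 refits and in all 8 other settings of filter, scaling, tool and samples. The antibody treatments gave -0.23 with trastuzumab (adjusted p = 0.251) and -0.22 with both antibodies (adjusted p = 0.222). Exons of genes on the other strand, DLD among them, cover 3.57% of its exon length. LAMB1 gained a call after the GC correction, at -0.31 with both antibodies (adjusted p = 0.043).

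LAMC1 (γ1 chain) varied less, with 85.5, 101 and 92.2 CPM with trastuzumab and 115, 103 and 113 CPM with both antibodies. The pools had 99.9, 122 and 107 CPM in BT-TR1, 101, 88.6 and 100.1 CPM in BT-TR2, 84.05, 72.1 and 92.01 CPM in BT-TPR1 and 87.96, 79.96 and 96.9 CPM in BT-TPR2, against 125, 126 and 112 CPM in the untreated libraries. The trastuzumab, BT-TPR1, BT-TPR2 and BT-TR2 libraries lay below the untreated range, with -0.38 ± 0.11 with trastuzumab (adjusted p = 0.0429), -0.33 ± 0.11 in BT-TR2 (adjusted p = 0.0376), -0.55 ± 0.11 in BT-TPR1 (adjusted p = 0.00131) and -0.46 ± 0.11 in BT-TPR2 (adjusted p = 0.00441). For LAMC1, the call with trastuzumab was lost in 12 of the 21 refits without 1 library (adjusted p up to 0.156, without trastuzumab replicate 1) and the call in BT-TR2 was lost in 7 of the 21 refits without 1 library (adjusted p up to 0.151, without BT-TR2 replicate 2). LAMC1 also missed the threshold with trastuzumab in 5 of 8 other settings (adjusted p up to 0.177, when the compared groups were fitted alone), in BT-TR2 in 4 of 8 other settings (adjusted p up to 0.153, with library size alone) and in BT-TPR2 when the compared groups were fitted alone (adjusted p = 0.0504). LAMC1 gained a call after the GC correction, at -0.27 in BT-TR1 (adjusted p = 0.0467).

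LAMA5 (α5 chain) had 34.6, 30.8 and 25.7 CPM with trastuzumab and 40.8, 32.6 and 19.4 CPM with both antibodies. Its level came to 26.6, 17.1 and 10.95 CPM in BT-TR1, 67.8, 28.4 and 28.7 CPM in BT-TR2, 73.9, 32.6 and 28.4 CPM in BT-TPR1 and 62.4, 27.8 and 20.7 CPM in BT-TPR2, against 125, 56.9 and 51.3 CPM in the untreated libraries. Replicate 1 was highest in every group, 125 CPM in untreated cells, and the transcripts are 65.3% G and C. The treated libraries and BT-TR1 lay below the untreated range, but only BT-TR1 was called, at -2.07 ± 0.50 (adjusted p = 0.00291). The values -1.35 with trastuzumab (adjusted p = 0.0915), -1.33 with both antibodies (adjusted p = 0.0737) and -1.07 in BT-TPR2 (adjusted p = 0.0909) were not called. LAMA5 passed under the replicate block as well, at -1.23 with trastuzumab (adjusted p = 6.91e-06), -0.90 in BT-TR2 (adjusted p = 8.13e-05), -0.80 in BT-TPR1 (adjusted p = 2.70e-04) and -1.10 in BT-TPR2 (adjusted p = 5.40e-06). LAMA5 had a log2 fold change of -0.82 in BT-TR1 (adjusted p = 0.00481) after the GC correction. LAMA5 gained a call after the GC correction, at -0.87 with trastuzumab (adjusted p = 0.0049), -0.75 with both antibodies (adjusted p = 0.00965), -0.54 in BT-TR2 (adjusted p = 0.0365) and -0.61 in BT-TPR2 (adjusted p = 0.0173).

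LAMB2 (β2 chain), the partner of α and γ chains in laminins of vessel and muscle basement membranes, had 77.6, 68.8 and 60.3 CPM with trastuzumab and 84.4, 65.1 and 49.2 CPM with both antibodies. It stood at 43.8, 41.5 and 22.2 CPM in BT-TR1, 69.6, 41.5 and 47.4 CPM in BT-TR2, 60.5, 30.1 and 36.5 CPM in BT-TPR1 and 63.2, 32.9 and 32.4 CPM in BT-TPR2, against 119, 66.4 and 62.9 CPM in the untreated libraries. BT-TR1 and BT-TPR1 lay below the untreated libraries, and BT-TPR2 overlapped with them through its replicate 1. The differences were -1.20 ± 0.34 in BT-TR1 (adjusted p = 0.00806), -0.96 ± 0.33 in BT-TPR1 (adjusted p = 0.036) and -0.95 ± 0.33 in BT-TPR2 (adjusted p = 0.0346). For LAMB2, the call in BT-TR1 was lost without untreated replicate 1 or BT-TR1 replicate 3 (adjusted p = 0.0683 and 0.0529), the call in BT-TPR1 was lost without untreated replicate 1, BT-TPR1 replicate 2 or BT-TPR1 replicate 3 (adjusted p = 0.22, 0.154 and 0.117) and the call in BT-TPR2 was lost without untreated replicate 1, BT-TPR2 replicate 2 or BT-TPR2 replicate 3 (adjusted p = 0.214, 0.138 and 0.139). LAMB2 also missed the threshold in BT-TPR2 when the compared groups were fitted alone (adjusted p = 0.0729). LAMB2 passed under the replicate block as well, at -0.62 in BT-TR2 (adjusted p = 0.00139). LAMB2 had a log2 fold change of -0.57 in BT-TR1 (adjusted p = 0.0157) after the GC correction. LAMB2 gained a call after the GC correction, at -0.53 in BT-TR2 (adjusted p = 0.0197).

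**Figure D3:**
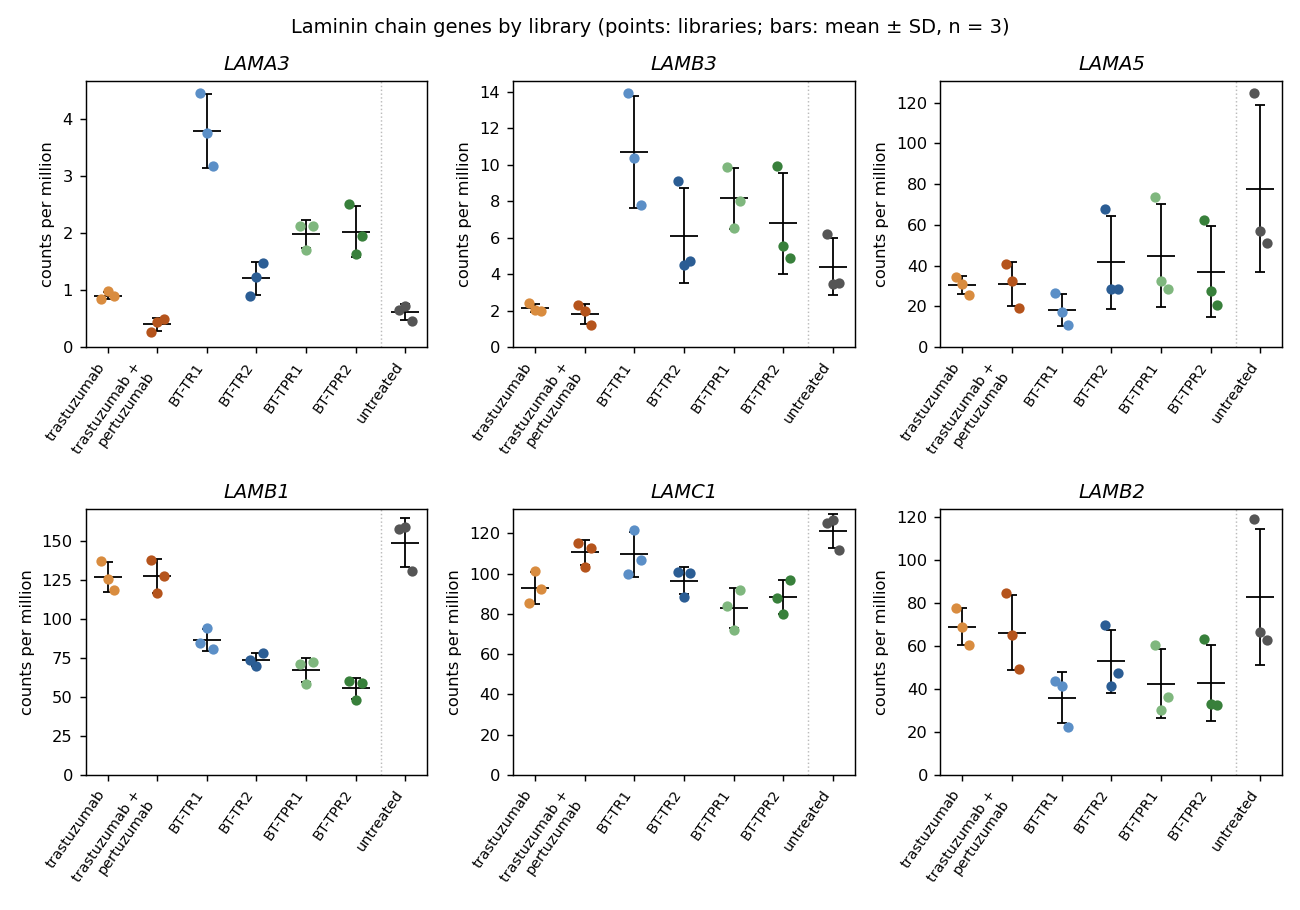
CPM of the laminin genes LAMA3, LAMB3 and LAMA5 (top) and LAMB1, LAMC1 and LAMB2 (bottom) in each library (points, 3 per group) with the group mean and SD (bars), on linear axes from 0. LAMA3 lies above and LAMB1 below the untreated libraries in each pool, and LAMA5 is spread widely by its replicate 1 libraries.

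ITGB1 encodes the β1 chain that most collagen- and laminin-binding integrins share, and it was the most abundant member per length, at 111 ± 22.5 RPKM (SD, n = 3) in untreated cells. It fell in every group against untreated cells. Treated cells had 311, 449 and 453 CPM with trastuzumab and 380.2, 399 and 474 CPM with both antibodies. Pool libraries had 370.04, 507 and 512 CPM in BT-TR1, 316, 369 and 439 CPM in BT-TR2, 294, 292 and 372 CPM in BT-TPR1 and 334, 341 and 439 CPM in BT-TPR2, against 562, 821 and 626 CPM in the untreated libraries. All treated and pool libraries were below all untreated ones, of which replicate 2 was highest. The log2 fold changes were -0.73 with trastuzumab, -0.68 with both antibodies, -0.53 in BT-TR1, -0.84 in BT-TR2, -1.07 in BT-TPR1 and -0.85 in BT-TPR2, with SE from 0.18 to 0.19 and adjusted p from 3.31e-04 to 0.0257. For ITGB1, the call with trastuzumab was lost without untreated replicate 2 or trastuzumab replicate 1 (adjusted p = 0.135 and 0.108), the call with both antibodies was lost without untreated replicate 2, dual-antibody replicate 1 or dual-antibody replicate 2 (adjusted p = 0.127, 0.0773 and 0.0743) and the call in BT-TR1 was lost without untreated replicate 2 or BT-TR1 replicate 1 (adjusted p = 0.177 and 0.152). ITGB1 also missed the threshold with trastuzumab with library size alone or when the compared groups were fitted alone (adjusted p = 0.0554 and 0.0914), with both antibodies with library size alone or when the compared groups were fitted alone (adjusted p = 0.0546 and 0.0568) and in BT-TR1 with library size alone (adjusted p = 0.0528). The calls in BT-TR2, BT-TPR1 and BT-TPR2 held in all 21 refits.

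ITGB6 (chr2:160099666-160200313, minus strand), whose β6 chain pairs with αv and activates latent TGF-β on epithelial cells, was called in opposite directions with the antibody treatments. It had 10.9, 10.9 and 9.80 CPM with trastuzumab and 35.6, 29.5 and 29.4 CPM with both antibodies. The pools had 25.3, 34.3 and 31.7 CPM in BT-TR1, 24.7, 26.9 and 29.5 CPM in BT-TR2, 29.8, 32.3 and 34.02 CPM in BT-TPR1 and 22.3, 19.1 and 23.6 CPM in BT-TPR2, against 19.998, 22.1 and 14.2 CPM in the untreated libraries. The trastuzumab libraries lay below the untreated range and those with both antibodies above it, with log2 fold changes of -0.83 ± 0.15 with trastuzumab (adjusted p = 0.00237) and 0.75 ± 0.15 with both antibodies (adjusted p = 0.00276). The direct comparison of both antibodies with trastuzumab alone gave 1.58 ± 0.16 (adjusted p = 1.51e-05), with every library with both antibodies above every library with trastuzumab alone, and held in all 21 refits. BT-TR1, BT-TR2 and BT-TPR1 lay above the untreated range, at 0.70 ± 0.15 in BT-TR1 (adjusted p = 0.00157), 0.53 ± 0.15 in BT-TR2 (adjusted p = 0.0156) and 0.77 ± 0.15 in BT-TPR1 (adjusted p = 9.44e-04), and BT-TPR2 overlapped with it, at 0.21 (adjusted p = 0.308). BT-TPR2 was lower than BT-TPR1, with -0.56 ± 0.15 (adjusted p = 0.043). For ITGB6, the call in BT-TR2 was lost without untreated replicate 3 or BT-TR2 replicate 3 (adjusted p = 0.0813 and 0.0648) and the call for BT-TPR2 over BT-TPR1 was lost in 12 of the 21 refits without 1 library (adjusted p up to 0.177, without BT-TPR2 replicate 2). ITGB6 also missed the threshold with trastuzumab when the compared groups were fitted alone (adjusted p = 0.0537), in BT-TR2 when the compared groups were fitted alone (adjusted p = 0.0897) and for BT-TPR2 over BT-TPR1 with no filter or when the compared groups were fitted alone (adjusted p = 0.0625 and 0.0865). ITGB6 had a log2 fold change of 0.35 in BT-TR1 (adjusted p = 0.0999) after the GC correction.

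ITGB8, whose β8 chain also pairs with αv and binds latent TGF-β, was low and fell in each pool. It had 2.52, 2.64 and 2.54 CPM with trastuzumab and 2.75, 2.27 and 2.53 CPM with both antibodies. Pool and control values were 0.742, 1.04 and 1.06 CPM in BT-TR1, 0.480, 0.978 and 1.35 CPM in BT-TR2, 0.747, 1.07 and 0.897 CPM in BT-TPR1 and 1.05, 0.744 and 0.689 CPM in BT-TPR2, against 2.91, 3.83 and 2.22 CPM in the untreated libraries. No pool library overlapped with the untreated ones. The log2 fold changes were -1.67 in BT-TR1, -1.67 in BT-TR2, -1.72 in BT-TPR1 and -1.84 in BT-TPR2, with SE from 0.27 to 0.30 and adjusted p from 5.27e-05 to 2.84e-04, each held in all 21 refits, and the antibody treatments gave -0.21 with trastuzumab (adjusted p = 0.649) and -0.24 with both antibodies (adjusted p = 0.552). ITGB8 had a log2 fold change of -1.25 in BT-TPR2 (adjusted p = 7.31e-05) in limma on the deposited transformed values.

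ITGAV, the αv chain common to these receptors, moved less. There were 82.1, 94.6 and 91.8 CPM with trastuzumab and 93.7, 90.1 and 93.9 CPM with both antibodies. The others were 95.6, 133 and 119 CPM in BT-TR1, 71.8, 82.9 and 87.6 CPM in BT-TR2, 88.8, 89.8 and 93.6 CPM in BT-TPR1 and 96.3, 94.8 and 96.1 CPM in BT-TPR2, against 98.8, 141 and 108 CPM in the untreated libraries. All groups but BT-TR1 lay below the untreated range, and the calls were -0.52 ± 0.13 in BT-TR2 (adjusted p = 0.00551) and -0.35 ± 0.13 in BT-TPR1 (adjusted p = 0.0442), and BT-TR2 against BT-TR1 at -0.52 ± 0.13 (adjusted p = 0.0124). For ITGAV, the call in BT-TR2 was lost without untreated replicate 2 (adjusted p = 0.0623), the call in BT-TPR1 was lost in 16 of the 21 refits without 1 library (adjusted p up to 0.371, without untreated replicate 2) and the call for BT-TR2 over BT-TR1 was lost without BT-TR1 replicate 2, BT-TR1 replicate 3 or BT-TR2 replicate 1 (adjusted p = 0.0795, 0.0613 and 0.0898). ITGAV also missed the threshold in BT-TR2 with library size alone or when the compared groups were fitted alone (adjusted p = 0.0542 and 0.0684), in BT-TPR1 in 4 of 8 other settings (adjusted p up to 0.333, with library size alone) and for BT-TR2 over BT-TR1 with library size alone or when the compared groups were fitted alone (adjusted p = 0.0658 and 0.0538). ITGAV passed under the replicate block as well, at -0.37 with trastuzumab (adjusted p = 0.0067) and -0.26 in BT-TPR2 (adjusted p = 0.0245). ITGAV had a log2 fold change of -0.12 for BT-TR2 over BT-TR1 (adjusted p = 0.53) after the GC correction. ITGAV gained a call after the GC correction, at -0.35 with trastuzumab (adjusted p = 0.0324), -0.34 with both antibodies (adjusted p = 0.0287), -0.38 in BT-TR1 (adjusted p = 0.00931) and -0.30 in BT-TPR2 (adjusted p = 0.0329). In BT-TR1 ITGAV measured 0.00, and -0.38 (adjusted p = 0.00931) after the GC correction, its transcripts having 38.97% G and C, the lowest share among the members. ITGB5, the β5 partner, had 230.4, 175 and 164 CPM with trastuzumab and 279, 204 and 194 CPM with both antibodies. Its values were 187, 169 and 137 CPM in BT-TR1, 234, 169 and 181 CPM in BT-TR2, 195, 143 and 167 CPM in BT-TPR1 and 237, 149 and 179 CPM in BT-TPR2, against 275, 175 and 176 CPM in the untreated libraries. Every group overlapped with the untreated libraries and no comparison was called, with log2 fold changes against them from -0.34 in BT-TR1 to 0.11 with both antibodies. ITGB5 passed under the replicate block as well, at -0.32 in BT-TR1 (adjusted p = 0.00531) and -0.29 in BT-TPR1 (adjusted p = 0.0129).

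ITGA6 and ITGB4 encode the α6β4 laminin receptor of hemidesmosomes, and α6 also pairs with β1. ITGA6 had 48.2, 51.6 and 50.9 CPM with trastuzumab and 62.2, 57.9 and 58.3 CPM with both antibodies. It was measured at 46.5, 62.7 and 64.4 CPM in BT-TR1, 31.1, 35.9 and 40.3 CPM in BT-TR2, 38.3, 39.95 and 46.01 CPM in BT-TPR1 and 36.8, 37.1 and 44.5 CPM in BT-TPR2, against 62.4, 75.8 and 57.7 CPM in the untreated libraries. Trastuzumab, BT-TR2, BT-TPR1 and BT-TPR2 lay below the untreated range, and both antibodies and BT-TR1 overlapped with it. The calls were -0.87 ± 0.14 in BT-TR2 (adjusted p = 1.31e-04), -0.66 ± 0.14 in BT-TPR1 (adjusted p = 0.00146), -0.73 ± 0.14 in BT-TPR2 (adjusted p = 4.59e-04) and -0.69 ± 0.14 for BT-TR2 over BT-TR1 (adjusted p = 0.00454), each held in all 21 refits, beside -0.18 in BT-TR1 (adjusted p = 0.301). ITGA6 passed under the replicate block as well, at -0.38 with trastuzumab (adjusted p = 0.0106). ITGA6 gained a call after the GC correction, at -0.40 with trastuzumab (adjusted p = 0.0116) and -0.47 in BT-TR1 (adjusted p = 0.00147).

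ITGB4 had 23.3, 18.8 and 17.5 CPM with trastuzumab and 38.7, 30.6 and 19.2 CPM with both antibodies. Beside these it had 21.2, 20.1 and 12.8 CPM in BT-TR1, 45.3, 21.4 and 20.3 CPM in BT-TR2, 48.98, 26.9 and 32.7 CPM in BT-TPR1 and 69.7, 33.03 and 28.5 CPM in BT-TPR2, against 50.8, 27.98 and 28.04 CPM in the untreated libraries. Replicate 1 was highest in each group. Trastuzumab and BT-TR1 lay below the untreated libraries, and BT-TR1 gave the only call, at -0.97 ± 0.38 (adjusted p = 0.0466), beside -0.84 with trastuzumab (adjusted p = 0.184). For ITGB4, the call in BT-TR1 was lost in 9 of the 21 refits without 1 library (adjusted p up to 0.254, without untreated replicate 1). ITGB4 passed under the replicate block as well, at -0.79 with trastuzumab (adjusted p = 8.06e-04). ITGB4 had a log2 fold change of -0.01 in BT-TR1 (adjusted p = 0.961) after the GC correction. ITGB4 gained a call after the GC correction, at -0.54 with trastuzumab (adjusted p = 0.0294) and 0.59 in BT-TPR2 (adjusted p = 0.0062).

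ITGA3, the α3 chain of a laminin receptor, was the most abundant alpha chain. It had 255, 205 and 183 CPM with trastuzumab and 319.5, 249.97 and 207 CPM with both antibodies. It measured 152, 129 and 96.2 CPM in BT-TR1, 244, 154 and 179 CPM in BT-TR2, 208, 139.6 and 165 CPM in BT-TPR1 and 264, 148 and 164 CPM in BT-TPR2, against 361, 226 and 224 CPM in the untreated libraries. BT-TR1 and BT-TPR1 lay below the untreated range, with a called -1.10 ± 0.26 in BT-TR1 (adjusted p = 0.00238) and an uncalled -0.66 in BT-TPR1 (adjusted p = 0.0584). ITGA3 passed under the replicate block as well, at -0.31 with trastuzumab (adjusted p = 0.0339), -0.48 in BT-TR2 (adjusted p = 7.89e-04), -0.64 in BT-TPR1 (adjusted p = 3.24e-05) and -0.50 in BT-TPR2 (adjusted p = 4.12e-04). ITGA3 gained a call after the GC correction, at -0.41 in BT-TR2 (adjusted p = 0.00925), -0.53 in BT-TPR1 (adjusted p = 0.00118) and -0.36 in BT-TPR2 (adjusted p = 0.0165). COL1A1, 92.8 kb away on chromosome 17 and encoding the main fibrillar collagen of bone and skin, averaged 20.6 ± 5.17 CPM in BT-TR1 and 32.4 ± 11.9 CPM in untreated cells (SD, n = 3 each). It was called in no comparison in the edgeR fit with neither the GC correction nor the replicate block.

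ITGA2, the α2 chain of a collagen receptor, had 21.4, 31.5 and 27.8 CPM with trastuzumab and 26.7, 27.5 and 30.5 CPM with both antibodies. The pools and controls had 24.4, 39.5 and 36.4 CPM in BT-TR1, 23.1, 24.4 and 27.4 CPM in BT-TR2, 24.3, 22.5 and 27.8 CPM in BT-TPR1 and 22.9, 23.7 and 29.5 CPM in BT-TPR2, against 28.7, 40.7 and 31.3 CPM in the untreated libraries. It was called in no comparison, although BT-TR2 and BT-TPR1 lay below all untreated libraries. ITGA2 passed under the replicate block as well, at -0.43 in BT-TR2 (adjusted p = 0.00772), -0.43 in BT-TPR1 (adjusted p = 0.00735) and -0.41 in BT-TPR2 (adjusted p = 0.00874). ITGA2 gained a call after the GC correction, at -0.34 in BT-TR1 (adjusted p = 0.0472), -0.45 in BT-TR2 (adjusted p = 0.0103), -0.46 in BT-TPR1 (adjusted p = 0.00772) and -0.45 in BT-TPR2 (adjusted p = 0.00761). ITGA9, whose α9 chain pairs with β1 and binds tenascin-C, had 2.02, 2.15 and 2.26 CPM with trastuzumab and 2.97, 2.62 and 2.00 CPM with both antibodies. Its pool values came to 1.48, 0.957 and 0.660 CPM in BT-TR1, 1.44, 0.978 and 1.35 CPM in BT-TR2, 0.632, 0.440 and 0.577 CPM in BT-TPR1 and 1.22, 1.02 and 0.752 CPM in BT-TPR2, against 2.36, 1.76 and 1.36 CPM in the untreated libraries. BT-TPR1 and BT-TPR2 lay below the untreated range and BT-TR1 overlapped with it, and the calls were -0.74 ± 0.29 in BT-TR1 (adjusted p = 0.0448), -1.71 ± 0.30 in BT-TPR1 (adjusted p = 3.69e-04) and -0.85 ± 0.27 in BT-TPR2 (adjusted p = 0.0213). Exons of its antisense gene ITGA9-AS1 cover 6.46% of its exon length. For ITGA9, the call in BT-TR1 was lost in 14 of the 21 refits without 1 library (adjusted p up to 0.224, without untreated replicate 1) and the call in BT-TPR2 was lost without untreated replicate 1, BT-TPR2 replicate 2 or BT-TPR2 replicate 3 (adjusted p = 0.125, 0.0582 and 0.0982). ITGA9 also missed the threshold in BT-TR1 in 5 of 8 other settings (adjusted p up to 0.12, when the compared groups were fitted alone) and in BT-TPR2 when the compared groups were fitted alone or with replicates 2 and 3 alone (adjusted p = 0.0888 and 0.0519). ITGA9 had a log2 fold change of -1.02 in BT-TPR1 (adjusted p = 5.24e-04) in limma on the deposited transformed values.

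**Figure D4:**
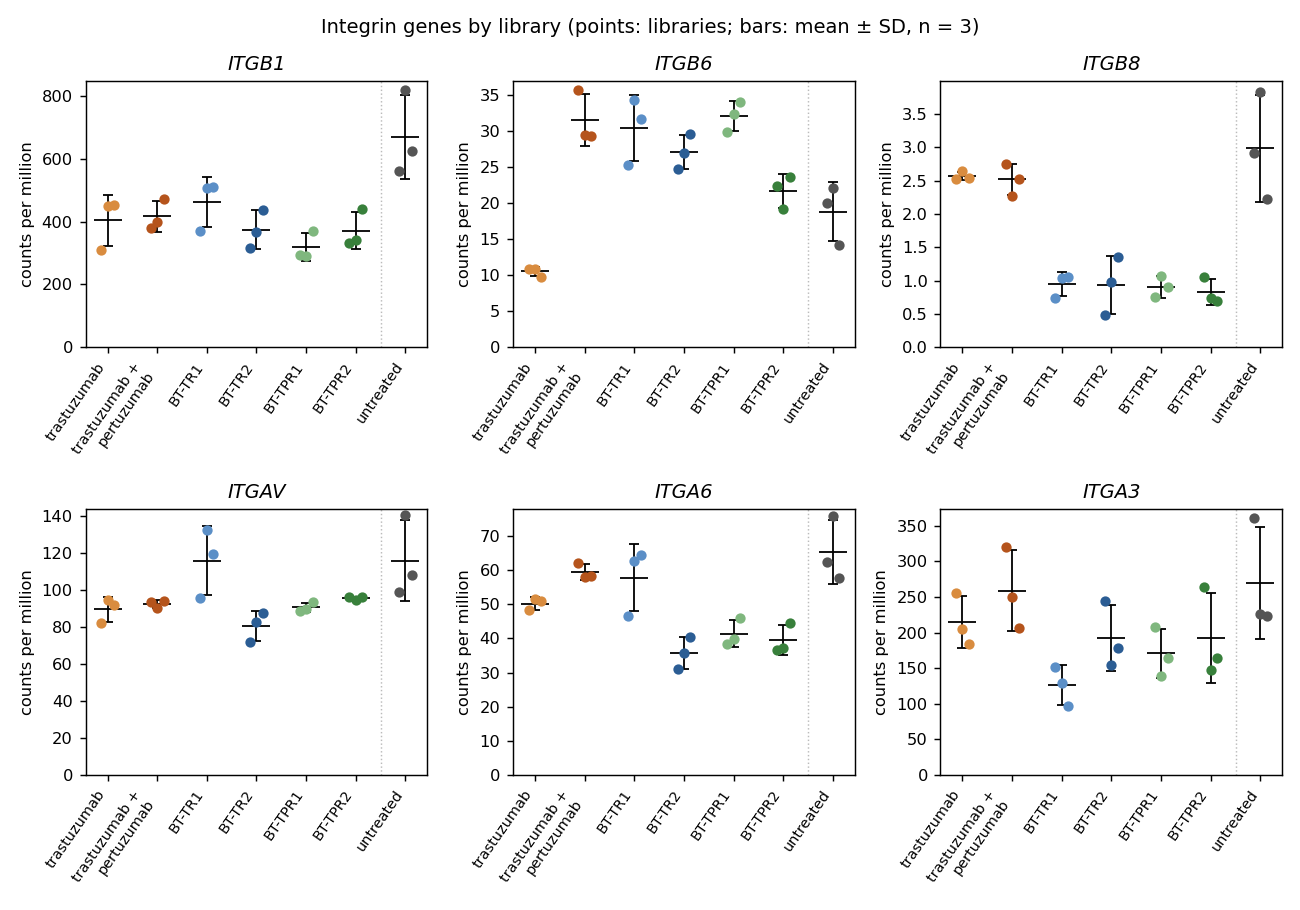
CPM of ITGB1, ITGB6, ITGB8, ITGAV, ITGA6 and ITGA3 in each library (points, 3 per group) with the group mean and SD (bars), on linear axes from 0. ITGB1 lies below the untreated libraries in all other groups, ITGB6 lies below them with trastuzumab and above them with both antibodies, and ITGB8 lies below them in each pool.

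A further 20 members averaged at most 2.56 CPM in any group, COL1A1 and ITGAE apart, and those named here were chosen after their values were seen. COL3A1, the partner of collagen I in skin and vessels, had 0 to 13 counts in a library and was not tested. COL1A1, COL20A1, COL4A1, COL4A3, ITGA5, ITGA7, ITGAE and ITGB2 were called in no comparison in the edgeR fit with neither the GC correction nor the replicate block. Of the 25 calls in the rest, 11 held in all 21 refits that left out 1 library. Both counts include comparisons with the group through which a gene met the count minimum, which are otherwise given as a description. These are COL15A1 for BT-TR1 and BT-TR2, ITGAL for BT-TR2, COL25A1 with both antibodies, and COL26A1 against untreated cells. For them a kept call does not measure stability, because that same group brought the gene in. COL15A1, a basement membrane collagen, rose in BT-TPR1 and BT-TPR2, with 1.51 ± 0.53 in BT-TPR1 (adjusted p = 0.0419) and 1.66 ± 0.51 in BT-TPR2 (adjusted p = 0.0188). Its log2 fold change was 2.54 in BT-TR1 and 2.19 in BT-TR2, as a description. COL15A1 averaged 0.742 ± 0.205 CPM in BT-TR1 and 0.560 ± 0.122 CPM in BT-TR2, against 0.117 ± 0.0173 CPM in untreated cells (SD, n = 3 each). COL17A1, the transmembrane collagen of hemidesmosomes, rose as well, with 1.08 ± 0.28 with both antibodies (adjusted p = 0.016), 0.90 ± 0.31 in BT-TR1 (adjusted p = 0.0231) and 0.89 ± 0.29 in BT-TR2 (adjusted p = 0.031). COL25A1, a membrane collagen, had 71 of its 148 counts with both antibodies, with a log2 fold change of 2.13 there, and was lower in BT-TPR2 (-2.65 ± 0.81, adjusted p = 0.0182), at 0.989, 1.38 and 1.22 CPM with both antibodies and 0.0582, 0 and 0.0627 CPM in BT-TPR2, against 0.220, 0.362 and 0.227 CPM in untreated cells. COL26A1, highest in untreated cells, had log2 fold changes of -2.59 in BT-TR1, -1.71 in BT-TR2 and -1.92 in BT-TPR2. COL16A1 fell in BT-TR1 and BT-TR2, ITGA2B in BT-TR1 and BT-TPR1, COL5A1 in BT-TPR1 and COL4A4 in BT-TR1, with log2 fold changes from -2.76 to -0.91. ITGA10, a collagen-binding alpha chain, rose in BT-TR1 with 1.62 ± 0.40 (adjusted p = 0.00347). For COL15A1, the call in BT-TPR1 was lost in 6 of the 21 refits without 1 library (adjusted p up to 0.23, without BT-TPR1 replicate 3) and the call in BT-TPR2 was lost without untreated replicate 2 or BT-TPR2 replicate 3 (adjusted p = 0.0538 and 0.0776). COL15A1 also missed the threshold in BT-TPR1 in 4 of 6 other settings (adjusted p up to 0.129, with no filter) and in BT-TPR2 in 3 of 6 other settings (adjusted p up to 0.056, with no filter). COL15A1 had a log2 fold change of 1.01 in BT-TR1, 0.48 in BT-TPR1 (adjusted p = 0.0621) and 0.57 in BT-TPR2 (adjusted p = 0.0264) in limma on the deposited transformed values. For COL17A1, the call with both antibodies was lost without untreated replicate 3 or dual-antibody replicate 2 (adjusted p = 0.0562 and 0.0503), the call in BT-TR1 was lost without untreated replicate 3, BT-TR1 replicate 1 or BT-TR1 replicate 2 (adjusted p = 0.0604, 0.0776 and 0.0918) and the call in BT-TR2 was lost without untreated replicate 2, untreated replicate 3, BT-TR2 replicate 1 or BT-TR2 replicate 3 (adjusted p = 0.0774, 0.0828, 0.139 and 0.0619). COL17A1 also missed the threshold in BT-TR1 when the compared groups were fitted alone or with replicates 2 and 3 alone (adjusted p = 0.0634 and 0.103) and in BT-TR2 in 3 of 8 other settings (adjusted p up to 0.136, with replicates 2 and 3 alone). COL17A1 passed under the replicate block as well, at 0.81 with trastuzumab (adjusted p = 0.0293), 0.70 in BT-TPR1 (adjusted p = 0.0481) and 0.70 in BT-TPR2 (adjusted p = 0.039). COL17A1 gained a call after the GC correction, at 0.79 with trastuzumab (adjusted p = 0.0449), 0.73 in BT-TPR1 (adjusted p = 0.037) and 0.72 in BT-TPR2 (adjusted p = 0.0372). For COL25A1, the call in BT-TPR2 was lost without untreated replicate 2 or BT-TPR2 replicate 2 (adjusted p = 0.065 and 0.101). COL25A1 passed under the replicate block as well, at 1.39 with trastuzumab (adjusted p = 0.0126). COL25A1 had a log2 fold change of -0.73 in BT-TPR2 (adjusted p = 0.0321) in limma on the deposited transformed values. COL25A1 gained a call after the GC correction, at 1.34 with trastuzumab (adjusted p = 0.0428). For COL16A1, the call in BT-TR2 was lost without untreated replicate 1, BT-TR2 replicate 1 or BT-TR2 replicate 3 (adjusted p = 0.0638, 0.0774 and 0.053). COL16A1 also missed the threshold in BT-TR2 with replicates 2 and 3 alone (adjusted p = 0.0802). COL16A1 passed under the replicate block as well, at -1.20 with trastuzumab (adjusted p = 0.00838), -0.78 in BT-TPR1 (adjusted p = 0.0465) and -0.93 in BT-TPR2 (adjusted p = 0.0179). COL16A1 had a log2 fold change of -1.24 in BT-TR1 (adjusted p = 0.0457) after the GC correction. COL16A1 had a log2 fold change of -1.14 in BT-TR1 (adjusted p = 0.00109) in limma on the deposited transformed values. For ITGA2B, the call in BT-TPR1 was lost without untreated replicate 1, untreated replicate 2, BT-TPR1 replicate 2 or BT-TPR1 replicate 3 (adjusted p = 0.0886, 0.0681, 0.127 and 0.0536). ITGA2B passed under the replicate block as well, at -1.33 in BT-TR2 (adjusted p = 0.0115) and -1.23 in BT-TPR2 (adjusted p = 0.0134). ITGA2B had a log2 fold change of -2.17 in BT-TR1 (adjusted p = 0.014) after the GC correction. ITGA2B had a log2 fold change of -1.61 in BT-TR1 (adjusted p = 4.54e-04) and -0.92 in BT-TPR1 (adjusted p = 0.0331) in limma on the deposited transformed values. ITGA2B gained a call after the GC correction, at -1.28 with both antibodies (adjusted p = 0.0485) and -1.20 in BT-TR2 (adjusted p = 0.0436). For COL4A4, the call in BT-TR1 was lost without BT-TR1 replicate 2 (adjusted p = 0.0828). COL4A4 passed under the replicate block as well, at 0.83 for BT-TPR2 over BT-TPR1 (adjusted p = 0.0191). COL4A4 gained a call after the GC correction, at 0.79 for BT-TPR2 over BT-TPR1 (adjusted p = 0.0485). COL5A1 passed under the replicate block as well, at -0.83 in BT-TR2 (adjusted p = 0.0424). COL5A1 had a log2 fold change of -0.72 in BT-TPR1 (adjusted p = 0.00668) in limma on the deposited transformed values. For ITGA10, the call for BT-TR2 over BT-TR1 was lost without BT-TR1 replicate 2 or BT-TR2 replicate 1 (adjusted p = 0.11 and 0.0766). ITGA10 had a log2 fold change of 0.84 in BT-TR1 (adjusted p = 0.00286) and -0.79 for BT-TR2 over BT-TR1 (adjusted p = 0.0141) in limma on the deposited transformed values. COL1A1 passed under the replicate block as well, at -0.50 with trastuzumab (adjusted p = 0.00441), -0.62 in BT-TR1 (adjusted p = 2.90e-04), -0.34 in BT-TPR1 (adjusted p = 0.0297) and -0.42 in BT-TPR2 (adjusted p = 0.00722). COL1A1 gained a call after the GC correction, at -0.35 with trastuzumab (adjusted p = 0.0454) and -0.45 with both antibodies (adjusted p = 0.00869).

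ITGAL, the αL chain of the leukocyte integrin LFA-1, had 0.112, 0.147 and 0.0942 CPM with trastuzumab and 0.110, 0.148 and 0 CPM with both antibodies. It had 1.34, 0.435 and 0.528 CPM in BT-TR1, 1.92, 1.24 and 2.18 CPM in BT-TR2, 0.345, 0.378 and 0.256 CPM in BT-TPR1 and 0.349, 0.372 and 0.501 CPM in BT-TPR2, against 0.220, 0.103 and 0.0454 CPM in the untreated libraries. Every library of the pools exceeded every untreated library, and the calls were 2.71 ± 0.58 in BT-TR1 (adjusted p = 0.00131) and 1.71 ± 0.61 in BT-TPR2 (adjusted p = 0.0378). In BT-TR2, which held 90 of its 174 counts, the log2 fold change was 3.82. The 6 leukocyte markers summed to 0.593 to 0.792 CPM in BT-TR1, 0.420 to 0.721 CPM in BT-TR2 and 0.313 to 0.640 CPM in BT-TPR2, against 0.544 to 0.621 CPM in untreated cells. PTPRC, which leukocytes share, had 0 counts in all libraries of BT-TR1, BT-TR2 and untreated cells. ITGB2, the β2 partner of αL, had 0.973 ± 0.0589 CPM in BT-TR1 and 1.57 ± 0.250 CPM in BT-TR2, against 1.08 ± 0.357 CPM in untreated cells (SD, n = 3 each). It was called in no comparison in the edgeR fit with neither the GC correction nor the replicate block. ITGB2 passed under the replicate block as well, at 0.61 in BT-TPR1 (adjusted p = 0.0377) and 0.59 in BT-TPR2 (adjusted p = 0.0388). ITGB2 gained a call after the GC correction, at 0.68 in BT-TR2 (adjusted p = 0.0167), 0.76 in BT-TPR1 (adjusted p = 0.00687) and 0.78 in BT-TPR2 (adjusted p = 0.00408). For ITGAL, the call in BT-TPR2 was lost without untreated replicate 2, untreated replicate 3, BT-TPR2 replicate 2 or BT-TPR2 replicate 3 (adjusted p = 0.0869, 0.141, 0.0769 and 0.112). ITGAL also missed the threshold in BT-TPR2 in limma (adjusted p = 0.0548). ITGAL had a log2 fold change of 1.00 in BT-TR1 (adjusted p = 0.00235) and 0.61 in BT-TPR2 (adjusted p = 0.0548) in limma on the deposited transformed values.

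COL4A1 and COL4A2, the main collagen IV chains of most basement membranes, are transcribed away from each other on chromosome 13. The 126 bases between their RefSeq starts (chr13:110307158-110307283, build GRCh38.p14, printed on the plus strand) are shown because both genes share them, with 1 GC box in capitals.
COL4A1-COL4A2: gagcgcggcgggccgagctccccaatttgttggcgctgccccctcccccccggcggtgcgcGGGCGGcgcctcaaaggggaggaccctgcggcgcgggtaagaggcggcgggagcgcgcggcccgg
COL4A2 was called with both antibodies and in BT-TPR2, at -1.14 ± 0.33 with both antibodies (adjusted p = 0.0294) and -0.99 ± 0.33 in BT-TPR2 (adjusted p = 0.0279), with 1.16 ± 0.377 CPM with both antibodies and 1.28 ± 0.602 CPM in BT-TPR2, against 2.56 ± 0.599 CPM in untreated cells (SD, n = 3 each). COL4A1 gave -0.86 with both antibodies (adjusted p = 0.236) and -0.86 in BT-TPR2 (adjusted p = 0.167) in the same comparisons, at 0.255 ± 0.0537 CPM with both antibodies and 0.250 ± 0.0755 CPM in BT-TPR2, against 0.463 ± 0.163 CPM in untreated cells. For COL4A2, the call with both antibodies was lost without untreated replicate 1, untreated replicate 2, dual-antibody replicate 1 or dual-antibody replicate 3 (adjusted p = 0.11, 0.0637, 0.0645 and 0.159) and the call in BT-TPR2 was lost without untreated replicate 1, untreated replicate 2, BT-TPR2 replicate 2 or BT-TPR2 replicate 3 (adjusted p = 0.115, 0.0565, 0.136 and 0.115). COL4A2 also missed the threshold with both antibodies when the compared groups were fitted alone (adjusted p = 0.0605) and in BT-TPR2 when the compared groups were fitted alone (adjusted p = 0.0793). COL4A2 passed under the replicate block as well, at -0.76 in BT-TR1 (adjusted p = 0.0203) and -0.76 in BT-TPR1 (adjusted p = 0.0139). COL4A2 gained a call after the GC correction, at -0.72 in BT-TPR1 (adjusted p = 0.0451).

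The difference of BT-TR1 from untreated cells varied with GC content. Over all tested genes with a GC value, GC content and the log2 fold change had r = -0.487 in BT-TR1, a description across genes that share these libraries, beside -0.0863 in BT-TR2, -0.113 in BT-TPR1 and -0.149 in BT-TPR2. The antibody treatments had -0.193 with trastuzumab and -0.251 with both antibodies. The relation was strongest for BT-TR2 over BT-TR1, with r = 0.635. It was -0.153 for both antibodies over trastuzumab alone and -0.073 for BT-TPR2 over BT-TPR1. With each library corrected for GC content, BT-TR1 had 10 members higher and 22 lower and the members' median was -0.36, against 8 higher, 21 lower and a median of -0.70 without the correction. All tested genes had 16.8% higher and 20.9% lower with the correction, against 21.3% and 22.3% without it. COL4A5, LAMA3 and COL12A1 gave -2.77, 2.53 and -1.60 with it. Among the members described by library, COL7A1, COL6A2, ITGB4 and ITGB6 lost their calls in BT-TR1, and COL9A2 changed sign, as given with each gene. COL20A1, COL27A1, COL28A1, ITGA2, ITGA6, ITGAV and LAMC1 gained a call in BT-TR1, COL20A1 at 2.26 (adjusted p = 0.00349). The correction added calls in 9 members with trastuzumab, 5 with both antibodies, 9 in BT-TR2, 5 in BT-TPR1 and 8 in BT-TPR2, and removed 1 with trastuzumab and 1 with both antibodies. Of all tested genes, 16.2%, 21.7%, 37.8%, 39.8% and 42.1% were called with it in that order, against 7.48%, 12.4%, 24.9%, 27.3% and 31.6% without it.

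**Figure D5:**
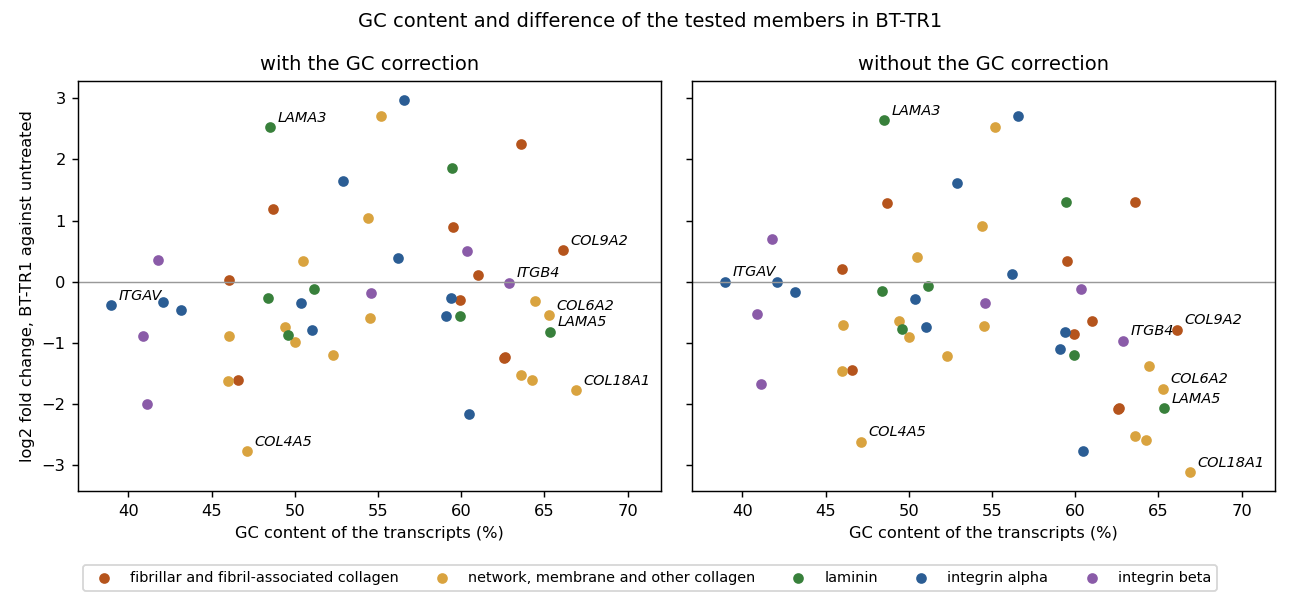
Log2 fold change of the 49 tested members in BT-TR1 against untreated cells (vertical axis) by the GC content of their transcripts in percent (horizontal axis), with the GC correction (left) and without it (right), coloured by family. Without the correction the members above 60% lie mostly below 0, and with it COL9A2 moves to 0.51 and ITGB4 to -0.01.

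Genes that finish and crosslink collagen were mostly lower where they changed. Of 21 tested genes of 23 listed, there were 1 higher and 12 lower in BT-TR1, 1 higher and 5 lower in BT-TR2, 0 higher and 11 lower in BT-TPR1 and 1 higher and 10 lower in BT-TPR2, with medians of -0.57, -0.37, -0.64 and -0.57 in that order. These were 4.76% higher and 57.1% lower in BT-TR1, 4.76% higher and 23.8% lower in BT-TR2, 0% higher and 52.4% lower in BT-TPR1 and 4.76% higher and 47.6% lower in BT-TPR2, where the shares of all tested genes were as given for each pool above, 12.7% and 12.1% in the pool with the lowest shares, BT-TR2. Which genes are named from this list and the lists below was not fixed by a rule in advance. P4HB, a subunit of the prolyl hydroxylase that stabilises the triple helix, had log2 fold changes of -0.74 in BT-TR1, -0.74 in BT-TPR1 and -0.50 in BT-TPR2. SERPINH1, the collagen chaperone HSP47, gave -0.95 with both antibodies, -0.72 in BT-TR1, -0.64 in BT-TPR1 and -0.66 in BT-TPR2. BMP1, which trims procollagen, was lower in each pool, from -1.89 in BT-TPR2 to -1.03 in BT-TR2. LOX, a crosslinking oxidase, was the listed gene that rose, with 2.21 in BT-TR1, 2.30 in BT-TR2 and 0.84 in BT-TPR2. In BT-TR2 the counts were 2 higher and 12 lower with the replicate block and 1 higher and 12 lower with the GC correction, and in BT-TR1 1 higher and 8 lower with the GC correction, where SERPINH1 gave -0.11 (adjusted p = 0.431), P4HB -0.32 (adjusted p = 0.022) and BMP1 -0.61 (adjusted p = 0.0144). Over all genes in BT-TR2, 8076 of 17650 were called with the block (4049 higher) and 6638 of 17554 with the GC correction (3366 higher). In BT-TR1 the GC correction called 6612 of 17554 genes, 2948 of them higher.

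Partners of laminin and collagen IV in the basement membrane gave 2 higher and 4 lower in BT-TR1, 2 higher and 4 lower in BT-TR2, 1 higher and 2 lower in BT-TPR1 and 1 higher and 4 lower in BT-TPR2 among 9 tested of 11. Those are 22.2% higher and 44.4% lower in BT-TR1, 22.2% higher and 44.4% lower in BT-TR2, 11.1% higher and 22.2% lower in BT-TPR1 and 11.1% higher and 44.4% lower in BT-TPR2, and in BT-TPR1 close to the shares of all genes given above. HSPG2 (perlecan), a heparan sulfate proteoglycan, had log2 fold changes of -2.35 in BT-TR1, -1.54 in BT-TR2 and -1.74 in BT-TPR2. AGRN (agrin), another such proteoglycan, had -2.66 in BT-TR1, -1.51 in BT-TR2 and -1.28 in BT-TPR2. After the GC correction HSPG2 gave -1.31 (adjusted p = 4.97e-04) and AGRN -1.28 (adjusted p = 1.29e-05) in BT-TR1, and AGRN -0.77 (adjusted p = 0.001) in BT-TPR2. DAG1 (dystroglycan), a laminin receptor, was lower in each pool, from -0.78 in BT-TR1 to -0.56 in BT-TR2. NTN4, a laminin-related netrin, was higher in each pool, from 2.62 in BT-TR1 to 1.90 in BT-TPR2. Other matrix receptors gave 1 higher and 5 lower in BT-TR1, 0 higher and 4 lower in BT-TR2, 0 higher and 4 lower in BT-TPR1 and 1 higher and 2 lower in BT-TPR2 among 8 tested of 9, or 12.5% higher and 62.5% lower in BT-TR1, 0% higher and 50% lower in BT-TR2, 0% higher and 50% lower in BT-TPR1 and 12.5% higher and 25% lower in BT-TPR2. SDC2 (syndecan-2) among them was lower in each pool, from -3.02 in BT-TPR1 to -2.13 in BT-TR1.

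The machinery that links integrins to actin gave 2 higher and 10 lower in BT-TR1, 2 higher and 3 lower in BT-TR2, 2 higher and 9 lower in BT-TPR1 and 1 higher and 9 lower in BT-TPR2 among 24 tested genes, with medians of -0.36, -0.05, -0.24 and -0.31. Its shares were 8.33% higher and 41.7% lower in BT-TR1, 8.33% higher and 12.5% lower in BT-TR2, 8.33% higher and 37.5% lower in BT-TPR1 and 4.17% higher and 37.5% lower in BT-TPR2, and that of lower genes in BT-TR2 is near the 12.1% of all genes. In BT-TR2 the GC correction gave 6 higher and 6 lower of the 24, where 6638 of 17554 genes were called, 3366 of them higher. The median of this list in BT-TR2 was 0.03 by library size alone, where all genes had 0.08. FERMT2 (kindlin-2), which activates β1 integrins together with talin, was lower in each pool, from -1.30 in BT-TPR2 to -0.42 in BT-TR1. TLN2 (talin-2) was likewise lower, from -1.04 in BT-TPR1 to -0.62 in BT-TR2. VCL (vinculin) fell with either treatment and in BT-TR2, BT-TPR1 and BT-TPR2, with values from -1.05 in BT-TPR2 to -0.46 with trastuzumab. TNS4 (tensin-4) and LIMS1 (PINCH) rose. TNS4 had 3.04 in BT-TR1, 3.89 in BT-TR2 and 1.57 in BT-TPR1. LIMS1 was higher in each pool, from 0.55 in BT-TPR2 to 0.83 in BT-TR1. FERMT2 gave -0.80 (adjusted p = 2.12e-06) in BT-TR1 after the GC correction.

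Markers of a mesenchymal state, which often accompany matrix genes, had 0 higher and 3 lower in BT-TR1, 0 higher and 3 lower in BT-TR2, 0 higher and 3 lower in BT-TPR1 and 0 higher and 4 lower in BT-TPR2 among 4 tested of 7. The lower ones were 75%, 75%, 75% and 100% of the 4, beside 22.3%, 12.1%, 14.4% and 16% of all tested genes. With trastuzumab, and with both antibodies, 1 of the 4 was higher and 1 lower, or 25% each way. Of all tested genes, 3.71% were higher and 3.78% lower with trastuzumab, and 6.39% and 6.02% with both antibodies. VIM (vimentin) was called higher with trastuzumab at 0.79 and with both antibodies at 0.65, and lower in the pools, from -2.97 in BT-TPR1 to -0.96 in BT-TR2 and CDH2 (N-cadherin) was lower there, from -3.48 in BT-TR1 to -1.28 in BT-TPR2. FBLN1, the tested fibroblast marker, was lower in each group, from -1.82 in BT-TR1 to -0.99 in BT-TPR2, while DCN had 0 counts in all pool and untreated libraries. The part of these markers in the members' differences was not tested.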

How the data were processed

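RNA-seq of 21 libraries in 7 groups of 3 was used. The deposited raw counts per gene were made by the authors with Bowtie2 and featureCounts on hg38, per the submitters' processing notes; versions, annotation and strand setting are not given in the sources used here. The deposited transformed values (log2-like, variance-stabilised by the authors, per the file headers and name) entered limma 3.58.1 as an alternative. Counts were tested with edgeR 4.0.16 in R 4.3.3 (quasi-likelihood, TMM scaling, low counts filtered by group at 10 counts and 15 in total, all 21 libraries in 1 fit, 14 residual degrees of freedom), with Benjamini-Hochberg adjustment over 17650 genes. CPM use TMM-scaled library sizes, RPKM the exon length in GENCODE 29, and SE is the absolute log2 fold change over the square root of F.

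The members and lists were chosen with earlier results of these data known. Values in every library are given for 29 members: those averaging at least 1 CPM and called at least once, by largest absolute log2 fold change against untreated cells, up to 7 in each family class, plus LAMA3, LAMB3, the chains of laminin-511 and the integrins ITGA6, ITGB4, ITGA2, ITGA3, ITGAV, ITGB1, ITGB5 and ITGB6. The members' counts include 1 gene whose own result is not reported here. Alternatives were RLE scaling, library size alone, no filter, a strict filter (1 CPM in 3 libraries), DESeq2 1.42.0, limma, only the compared groups, replicates 2 and 3 alone, a replicate block, a GC correction (spline with 5 degrees of freedom on 17554 genes with a GC value), both together, and each library left out. Replicate numbers come from the sample titles. Same-numbered libraries deviated together from their group means in 7 of 9 comparisons (r from 0.234 to 0.771 over every pair), which counts as paired there, but the calls given come from the fit without the block, and the block is an alternative. Depth sets the precision of low members, and the intervals from these tests cover the spread between the 3 libraries of a group. Scripts were tested on simulated counts.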

Additional observations from a re-analysis of the deposited data

Results flagged for a closer look

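These results drew attention because effects differed between groups by a direct test, edgeR's quasi-likelihood comparison of the groups with adjustment over all 17650 genes, and no explanation was weighed. Both antibodies against trastuzumab alone gave log2 fold changes of 1.58 in ITGB6, 0.79 in COL14A1 and -0.62 in COL12A1. The call in COL12A1 was lost in 11 of 21 refits without 1 library. BT-TR2 against BT-TR1 gave 1.70 in COL6A2, 1.17 in COL6A1, 0.88 in COL9A2 and 0.84 in COL4A5. The first 3 of these had 0.84, 0.45 and 0.01 after the GC correction and were not called. The same comparison gave -1.67 in LAMA3, -0.69 in ITGA6 and -0.52 in ITGAV, of which ITGAV had -0.12 (adjusted p = 0.53) after the GC correction. In ITGA10, named after its values were seen, it gave -1.48 (adjusted p = 0.0198), a call lost without BT-TR1 replicate 2 (adjusted p = 0.11) or BT-TR2 replicate 1 (adjusted p = 0.0766). BT-TPR2 against BT-TPR1 gave -1.63 in COL5A2, -1.40 in COL6A3, -0.99 in COL12A1 and -0.56 in ITGB6. Every library of BT-TPR2 was below every library of BT-TPR1 for these 4 genes. These pools did not overlap, in either direction, in 9 of the 49 tested members and 3318 of all 17650 tested genes. The call in ITGB6 was lost in 12 of 21 refits without 1 library and in 2 of 8 other settings.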

How the results depend on the processing

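The number of members called with trastuzumab (5) was 3 with limma or the compared groups alone, 10 with replicates 2 and 3 alone, 11 with no filter, 13 with the GC correction, 18 with the replicate block and 21 with the GC correction and the replicate block, and 2 to 7 without 1 library (at most 3 without untreated replicate 1, untreated replicate 2, trastuzumab replicate 1, trastuzumab replicate 2, trastuzumab replicate 3, dual-antibody replicate 1, dual-antibody replicate 2, dual-antibody replicate 3, BT-TR2 replicate 2 or BT-TR2 replicate 3). With trastuzumab, 7.48% of all tested genes were called without these changes, 6.61% with limma and 2.27% with the compared groups alone. They had 14% with replicates 2 and 3 alone, 4.52% with no filter and 3.32% to 7.8% without 1 library. The GC correction, the block and both together called 16.2%, 26.2% and 27.6% of them. Both antibodies (13) gave 23 with the replicate block and 20 with the GC correction and the replicate block together, and 9 to 15 without 1 library. All tested genes went from 12.4% called to 32.6% and 33.1%, and 6.14% to 13.3% without 1 library. Both antibodies against trastuzumab (3) gave 1 with the compared groups alone, 6 with the GC correction and the replicate block together and 1 to 4 without 1 library, 1 without trastuzumab replicate 3 or dual-antibody replicate 1. Here all tested genes had 153 of 17650 called, then 55 of 16803 and 485 of 17554, and 82 to 159 genes without 1 library. BT-TR1 (29) gave 25 to 30 without 1 library, beside 5410 to 7983 of all genes, against 7693 of 17650 with every library. BT-TR2 (21) gave 33 with the GC correction and the replicate block together and 14 to 22 without 1 library. All tested genes went from 4387 of 17650 called to 8467 of 17554, and 3028 to 4704 genes without 1 library. BT-TPR1 (22) gave 37 with the replicate block and 16 to 23 without 1 library. All tested genes went from 4815 to 8364 of 17650 with the block, and 3156 to 5088 genes without 1 library. BT-TPR2 (21) gave 12 with the compared groups alone, 32 with the replicate block and 15 to 28 without 1 library. All tested genes went from 5575 of 17650 called to 3060 of 16655 and 9019 of 17650, and 3665 to 6451 genes without 1 library. BT-TR2 against BT-TR1 (9) gave 18 with no filter and with replicates 2 and 3 alone, 24 with the replicate block and 3 to 10 without 1 library, 3 without BT-TR1 replicate 2 or BT-TR2 replicate 1. All tested genes went from 3129 of 17650 called to 3950 of 37355, 5307 of 17698 and 7555 of 17650 in these settings. Without 1 library, 534 to 4407 genes were called. BT-TPR2 against BT-TPR1 (5) gave 2 with the compared groups alone, 8 with the replicate block, 11 with the GC correction and the replicate block together and 3 to 5 without 1 library, 3 without BT-TPR1 replicate 1 or BT-TPR2 replicate 3. All tested genes went from 609 of 17650 called to 197 of 16104, 2119 of 17650 and 2759 of 17554 in these settings. Without 1 library, 351 to 659 genes were called. The cause of these moves was not tested. In both antibodies against untreated cells and BT-TR2 against BT-TR1 the replicate numbers were not shown to pair the libraries, so the block result stands only here.

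COL9A2 reversed in BT-TR1 to 0.51 (adjusted p = 0.0255) with the GC correction and 0.52 (adjusted p = 5.21e-04) with the GC correction and the replicate block together, in BT-TPR2 to 0.28 and in BT-TR2 against BT-TR1 to -0.0068 with both. ITGAV in BT-TR1 (0.00) gave -0.38 with the GC correction and -0.38 with both. Of 99 calls in the 29 members described by library, 66 were kept in all 21 refits, and across the other 11 alternatives 1017 of the called values stayed on their side of the threshold, 69 missed it in the same direction and 3 reversed. Of the values not called, 206 passed it under those alternatives. Library size alone shifted the median of all genes in BT-TPR1 by 0.14. Members under about 1 CPM rest on few counts, most so in BT-TR1, the shallowest group.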

Other observations

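The 29 family genes under the minimum of 100 counts had 1 to 91 counts each over all 21 libraries, 701 in total, and enter no comparison. COL1A2, whose chain joins COL1A1 in the common form of collagen I, had 3 counts where COL1A1 was expressed. COL4A6, the partner of COL4A5 in one collagen IV trimer, had 27 counts. ITGB3 and ITGB7 had 9 and 82 counts, and the myeloid and leukocyte alpha chains ITGAX and ITGAM 1 and 20. LAMA1, LAMA2 and LAMA4 had 6, 14 and 31 counts, so that LAMA3 and LAMA5 were the laminin alpha chains described. The tables were read as deposited, and no cause of these low values was tested.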
